A study of Mus musculus with 10 samples.

Results

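The ends of a 7-day reprogramming course were compared: 2 libraries of infected mouse embryonic fibroblasts at D7 with 2 libraries at D0, which are 4 of the 10 libraries of the series, chosen by the day in their labels. The fibroblasts were primary cells at passage 2, taken from E13.5 embryos of male mice carrying an Oct4-GFP transgenic allele (CBA/CaJ × C57BL/6J) mated with 129S4/SvJaeJ females. Every library, D0 included, came from cells exposed for 48 hours to retroviruses carrying Jdp2, Sall4, Esrrb and Glis1. D0 cells had spent 0 days and D7 cells 7 days in the induction medium iCD3, and the course also had D1, D3 and D5. The D0 libraries are therefore infected fibroblasts and not untreated ones, and the 10 libraries include no uninfected control. The series' design text speaks of 2 independent experiments, which the replicate numbers 1 and 2 are taken to mark, and does not say how many embryos were pooled. Whether the 2 came from separate batches of fibroblasts is not stated, so a p-value speaks only of how far these libraries differ, and part of that may be technical.

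Fibroblasts are connective tissue cells that hold their shape with contractile actin cables and lay down a collagen matrix. Reprogramming to pluripotency is known to involve the loss of that programme, a shift from mesenchymal to epithelial contacts, and the start of a network around Oct4, Sox2 and Nanog that most differentiated cells keep silent. Esrrb and Sall4 belong to that network, Glis1 is a zinc finger factor of the egg and early embryo, and Jdp2 is a repressor that competes with AP-1, the dimer of Jun and Fos proteins.

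The files gave RSEM's estimated counts for 54752 genes. Totals were 2176457 and 1492105 at D0 (replicates 1 and 2) and 4335931 and 1428598 at D7. Before any scaling, 3 counts stood for 0.692 to 2.1 per 1000000 of these totals in the 4 libraries. Low genes were measured least precisely in replicate 2. Levels below are CPM (counts per 1000000 of a TMM-scaled library total), with replicate 1 named before replicate 2. The share of counts in messenger RNAs of the mitochondrial genome was 2.17% to 3.272% in these 4 libraries. The totals of replicate 1 differed between the ends by more than those of replicate 2. The mean fragment length that RSEM's effective lengths imply was 158.5 and 204.1 bases at D0 and 135.8 and 200.9 at D7, so that it separated the replicate numbers and D7 replicate 1 had the shortest. The part of fragment length in the results was not tested, and libraries thinned to 1 depth gave 1717 higher and 1507 lower. D7 replicate 1 also stood apart in CT010467.1, a ribosomal RNA gene, which had 1413 and 477 CPM at D0 and 7542 and 644 CPM at D7. It was called higher (log2 change 1.77, adjusted p = 0.026), although its D0 and D7 libraries overlapped, and the call was lost without the block (adjusted p = 0.133) and without D0 replicate 1, D7 replicate 1 or D0 replicate 2 (adjusted p up to 0.857). A change of setting ended the call of CT010467.1 with DESeq2 (adjusted p = 0.0804) and with limma-voom (adjusted p = 0.0527). Differences between replicate 1 and replicate 2 were shared between days: their correlation across genes was 0.273 to 0.436 over the 10 pairs of days and 0.328 between D0 and D7. In a mixed culture, fewer cells of a type and less RNA per cell cannot be told apart.

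A model with a term for the day and one for the replicate number was fitted to all 10 libraries, and D7 was compared with D0 (edgeR quasi-likelihood test). Of 12752 genes tested, 3629, or 28.5%, had a Benjamini-Hochberg adjusted p under 0.05, which is what a call means below. Higher at D7 were 1884 genes, 14.8% of those tested, and lower were 1745, or 13.7%. These shares are the background for every list below, together with the median log2 change of all tested genes, 0.06. Some genes belong to several lists, so the counts of different lists are not independent. Rises were larger than falls: the median change was 2.17 among genes called higher and -1.57 among genes called lower. At least 3 log2 units separated the days for 583 genes that rose and 285 that fell, where a gene with 3 counts or fewer on a day was set at the bound that 3 counts allow. Such bounds, given below as at least a fold, pool the counts of the 2 libraries of a day, so the deeper D7 replicate 1 weighs more. Of the genes that rose, 259 had no count in either D0 library, whereas 11 genes that fell had none at D7. In replicate 1 the D7 library was deeper (4335931 counts) than the D0 library (2176457 counts), so a 0 was easier to reach at D0. The part of depth in this contrast and in the sizes of rises and falls was not tested. The 2 D0 and the 2 D7 libraries did not overlap for 3595 of the 3629 genes, against 64.4% of all tested genes. Within both replicate numbers, 3617 called genes moved the same way, which a call from a fit with the replicate block largely fixes. The share over all tested genes was not computed.

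Protein-coding genes made up 12060 of the tested genes, with 1734 higher and 1721 lower. Long intergenic noncoding RNAs had more rises than falls, with 40 of 147 higher and 3 lower, as did processed pseudogenes, with 35 of 205 higher and 6 lower. Counts of calls depended on single libraries. Without D0 replicate 1 there were 685 higher and 790 lower, and without D7 replicate 1 974 higher and 939 lower. Without D0 replicate 2 there were 1230 higher and 1150 lower, and without D7 replicate 2 1235 higher and 1001 lower. Calls were more numerous without D5 replicate 1, with 2669 higher and 2130 lower, or without D5 replicate 2, with 2628 and 2336. Counts in parentheses after a list are those that moved by over 1.5 times when 1 of the 10 libraries was left out. Without the replicate number as a block 1167 were higher and 1111 lower, and all 2278 of these were also called with it. The calls of 1239 genes held in every alternative that tested the gene.

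**Figure D1:**
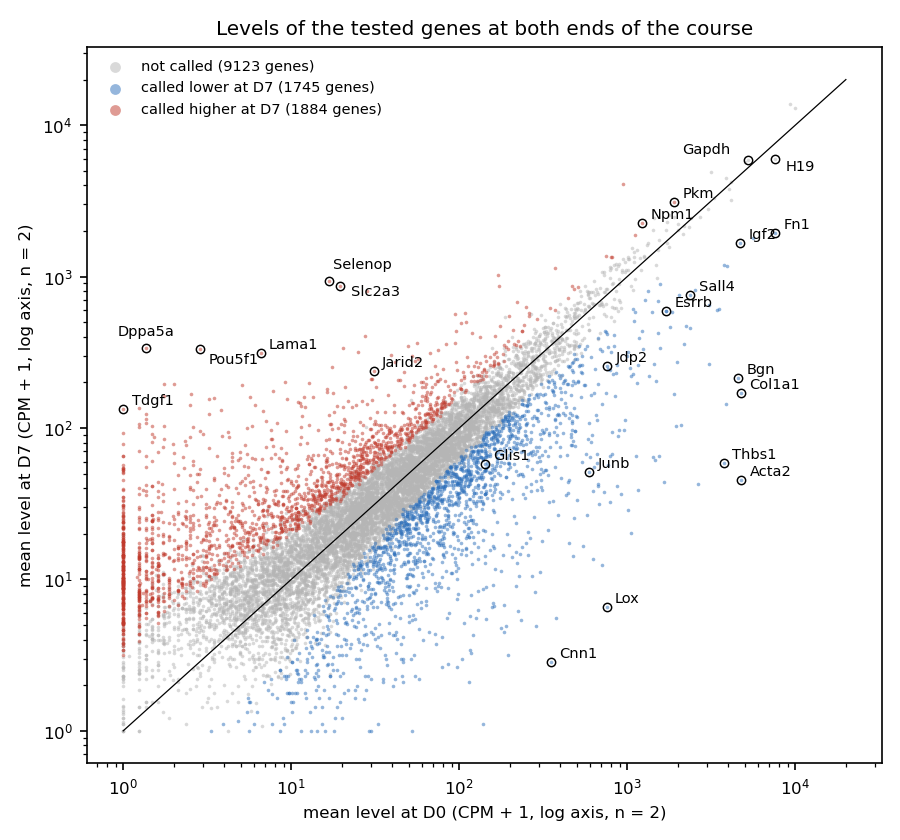
Mean level of each tested gene at D0 (horizontal) and D7 (vertical), as CPM plus 1 on log axes, n = 2 libraries a day. Points on the line have the same level on both days; blue points are the 1745 genes called lower, red points the 1884 called higher, and the red column at the left edge holds genes with no count at D0.

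The 2 groups of called genes were followed by their share of all counts. At D0 the genes called lower took 32.1% and 34.7% of all counts (replicates 1 and 2), and at D7 they took 10% and 12%. Genes called higher took 4.36% and 4.27% at D0 and 15.6% and 13% at D7. On the days between, the share of the first group was 18.8% and 22.7% at D1, 14.4% and 17.7% at D3, and 10.5% and 13.8% at D5. The largest drop in that share lay between D0 and D1, in both replicate numbers. The second group stood at 7.07% and 6.83% at D1, 9.33% and 8.62% at D3, and 12.6% and 10.2% at D5. These groups were chosen on D0 and D7, so their shares on those 2 days describe the choice and carry no test. The same holds for steps that start or end on those days, the drop between D0 and D1 included.

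**Figure D2:**
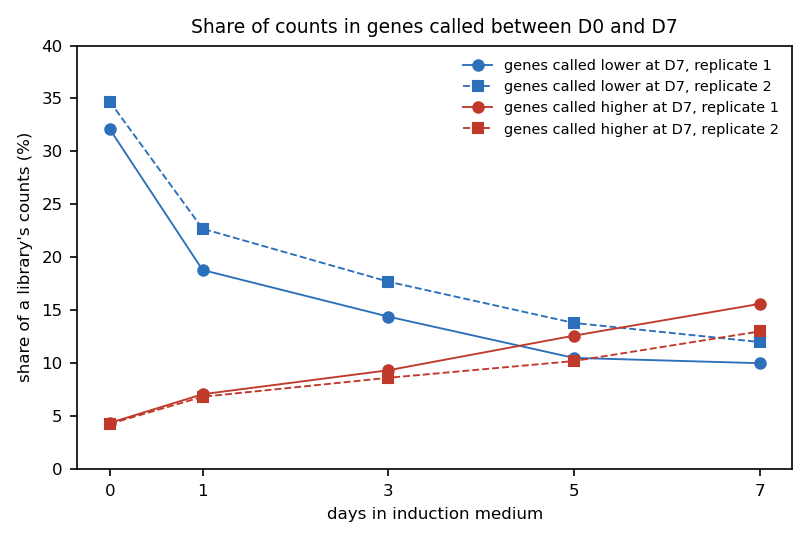
Share of a library's counts, in percent, taken by the 1745 genes called lower (blue) and the 1884 called higher (red) at D7, against days in induction medium, with 1 line for each replicate number. The blue group holds 32.1% and 34.7% at D0 and 10% and 12% at D7, and the red group passes it between D5 and D7 in replicate 2 and between D3 and D5 in replicate 1.

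The delivered factors were lower at D7 in all 4 cases, with the block in the fit. Sall4, which early embryos and embryonic stem cells depend on, had 2070 and 2677 CPM at D0 and 754 and 744 CPM at D7 (log2 change -1.64, SE 0.27, adjusted p = 0.000702). Esrrb, an orphan nuclear receptor, had 1579 and 1836 CPM at D0 and 607 and 576 CPM at D7 (log2 change -1.51, SE 0.26, adjusted p = 0.00101). Jdp2 had 951 and 561 CPM at D0 and 337 and 173 CPM at D7 (log2 change -1.59, SE 0.32, adjusted p = 0.00278). For Glis1 the libraries gave 74.9 and 207 CPM at D0 and 42.9 and 70.3 CPM at D7 (log2 change -1.14, SE 0.33, adjusted p = 0.0199). Glis1 differed between replicate numbers on both days, its D7 replicate 2 lying close to its D0 replicate 1, and its call was lost without the block (adjusted p = 0.261) and without D0 replicate 1, D0 replicate 2 or D7 replicate 2 (adjusted p up to 0.255). Reads from the virus and from the cell's own gene cannot be told apart in these counts. By TPM, the scale on which genes can be compared, Esrrb (620 and 533 TPM) stayed above Sall4 (306 and 232 TPM) at D7, and above Pou5f1 (417 and 399 TPM).

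Measured by the difference in mean CPM, the 12 largest falls were all of cytoskeletal, matrix and growth factor genes. Fibronectin (Fn1), a matrix glycoprotein that integrins bind, had 6715 and 8454 CPM at D0 and 1543 and 2319 CPM at D7 (log2 change -2.0, SE 0.26, adjusted p = 0.000126). Acta2, the actin of smooth muscle and myofibroblasts, had 4578 and 4932 CPM at D0 and 19.4 and 69 CPM at D7 (log2 change -7.03, SE 0.53, adjusted p = 2.56e-06). Collagen type I, the main fibre of connective tissue, fell in both chains, Col1a1 with 3933 and 5530 CPM at D0 and 108 and 228 CPM at D7 and Col1a2 with 4055 and 3666 CPM at D0 and 103 and 181 CPM at D7, log2 changes of -4.88 and -4.82. In the proteoglycan Bgn (biglycan), the counter-adhesive protein Thbs1 (thrombospondin) and the tropomyosin Tpm1 the changes were -4.48, -6.14 and -3.57. Smaller falls from high levels were those of Actg1, cytoplasmic gamma-actin (5143 and 6020 CPM at D0 and 1508 and 2102 CPM at D7), Flna, the actin crosslinker filamin A (3155 and 3723 CPM at D0 and 554 and 643 CPM at D7), and Hspg2, perlecan (2580 and 4452 CPM at D0 and 476 and 736 CPM at D7). Igf2, an embryonic growth factor, had 4179 and 5190 CPM at D0 and 1065 and 2275 CPM at D7, and Igfbp4, a binding protein of such factors, 4021 and 3831 CPM at D0 and 1094 and 1269 CPM at D7. In each of these 12 genes both D7 libraries lay below both D0 libraries, and all 12 calls held without any 1 of the 4 libraries. The call of Igf2 alone among them was lost without the block (adjusted p = 0.0508). The choice of these 12 called genes by their fall largely fixed the lack of overlap between days.

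The 12 largest rises in mean CPM, after the ribosomal RNA gene given above, included 5 genes of glucose uptake and glycolysis. Selenop, which encodes a secreted selenium carrier, had 15.7 and 15.7 CPM at D0 and 1077 and 784 CPM at D7 (log2 change 5.89, SE 0.41, adjusted p = 1.52e-06), and lies at chr15:3268547-3280508 on GRCm38. Slc2a3, the high-affinity glucose transporter GLUT3, had 16.2 and 20.9 CPM at D0 and 1026 and 706 CPM at D7 (log2 change 5.54, SE 0.34, adjusted p = 9.42e-07). Gpi1, the second enzyme of glycolysis, had 286 and 457 CPM at D0 and 1122 and 1155 CPM at D7 (log2 change 1.65, SE 0.23, adjusted p = 0.000221). Pkm (1474 and 2325 CPM at D0 and 2847 and 3322 CPM at D7), Aldoa (828 and 1408 CPM at D0 and 1724 and 2025 CPM at D7) and Pgk1 (789 and 701 CPM at D0 and 1584 and 1156 CPM at D7), enzymes of the same pathway, started from high levels and changed by 0.73, 0.79 and 0.86 on the log2 scale. Npm1, a nucleolar chaperone of ribosome assembly, had 1371 and 1073 CPM at D0 and 2725 and 1811 CPM at D7, a change of 0.87. The other 4 were D10Wsu102e (179 and 159 CPM at D0 and 1470 and 590 CPM at D7), Gm38312 (26.9 and 27.7 CPM at D0 and 1004 and 589 CPM at D7), Gm42860 (203 and 139 CPM at D0 and 1388 and 341 CPM at D7) and Rpl3-ps1, a pseudogene whose reads can be shared with Rpl3 (863 and 744 CPM at D0 and 1444 and 1266 CPM at D7). In all 11 both D7 libraries lay above both D0 libraries, which their choice as called genes with large rises largely fixed. The calls of Selenop, Slc2a3, Gm38312 and Gpi1 held without any 1 of the 4 libraries, while calls were lost for Pkm whichever of the 4 libraries was left out (adjusted p up to 0.279), Aldoa whichever of the 4 libraries was left out (adjusted p up to 0.266), Pgk1 whichever of the 4 libraries was left out (adjusted p up to 0.171), Npm1 without D0 replicate 1, D7 replicate 1 or D7 replicate 2 (adjusted p up to 0.159), D10Wsu102e without D0 replicate 1 (adjusted p = 0.0657), Gm42860 without D0 replicate 1 or D7 replicate 1 (adjusted p up to 0.121) and Rpl3-ps1 whichever of the 4 libraries was left out (adjusted p up to 0.174). Without the block the calls of Pkm, Aldoa, Pgk1, Npm1 and Rpl3-ps1 were lost (adjusted p = 0.177, 0.175, 0.0939, 0.142 and 0.0863).

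The most abundant genes without a call were mt-Co1, a mitochondrial subunit of the respiratory chain (9863 and 8646 CPM at D0 and 12777 and 14824 CPM at D7), the elongation factors Eef1a1 (9826 and 10034 CPM at D0 and 12359 and 13448 CPM at D7) and Eef2 (3232 and 4463 CPM at D0 and 3753 and 5200 CPM at D7), the chaperone Hsp90ab1 (2871 and 3422 CPM at D0 and 5072 and 4686 CPM at D7), Gapdh (3480 and 7032 CPM at D0 and 4836 and 6957 CPM at D7), the imprinted noncoding RNA H19 (7197 and 7991 CPM at D0 and 4108 and 7850 CPM at D7), and Gm28661 and Gm28437. The last pair had log2 changes of 0.21 and 0.10. Among the 20 genes with the highest TPM at D7, none was called in either direction.

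Contractile genes and targets of serum response factor (SRF) fell almost as a whole. SRF works with the co-activator Mrtfa, which responds to polymerised actin, and binds a DNA element called the CArG box. Of 28 tested members, 27 fell, none rose, and the median log2 change was -3.46. Their summed level was 26264 and 29318 CPM at D0 and 2338 and 3293 CPM at D7. Actg2, enteric smooth muscle actin, had 137 and 137 CPM at D0 and 0.218 and 0 CPM at D7 (ratio 0.00119, 95% counting interval 3.01e-05 to 0.00667, adjusted p = 1.18e-06). Cnn1, calponin, an actin-binding regulator of contraction, had 343 and 357 CPM at D0 and 1.74 and 1.97 CPM at D7 (log2 change -7.48, SE 0.44, adjusted p = 7.68e-07). Tagln, transgelin, which bundles actin, had 2506 and 2745 CPM at D0 and 16 and 67.1 CPM at D7 (log2 change -6.37, SE 0.57, adjusted p = 8.55e-06). The member without a call at the highest level was Csrp2, a LIM protein of smooth muscle (68 and 53.9 CPM at D0 and 68.3 and 63.1 CPM at D7, adjusted p = 0.812). In the 3 genes that fell, the D7 libraries lay far below both D0 libraries, which their choice by the size of the change largely fixed.

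Promoters of 4 members are printed below their values, so that the CArG box can be seen where it lies. Matches on either strand were counted in stretches that begin 250 bases before the annotated start and run past it. Of the 25 members with a promoter in the RefSeq table (GRCm38.p6), 7 had a match, 28%, against 488 of all 27025 genes, 1.81%. The list was made of contractile genes and SRF targets, so part of this share follows from how it was made. The 7 were Acta1, Actc1, Cnn2, Filip1l, Myl9, Srf and Vcl. Actc1 was not tested, and the other 6 were all called lower. The 4 shown were picked after their values were seen, for their match, and cover a myosin light chain (Myl9), a calponin (Cnn2), SRF itself and the focal adhesion protein vinculin (Vcl). Myl9 had 424 and 522 CPM at D0 and 6.74 and 19.7 CPM at D7 (log2 change -5.38, SE 0.35, adjusted p = 1.18e-06). Cnn2 had 840 and 951 CPM at D0 and 62.6 and 129 CPM at D7 (log2 change -3.34). Vcl had 651 and 665 CPM at D0 and 79.7 and 143 CPM at D7 (log2 change -2.62). Srf had 100 and 160 CPM at D0 and 35 and 57.2 CPM at D7 (log2 change -1.50). The windows lie at chr2:156775214-156775463, plus strand; chr10:79988350-79988599, plus strand; chr17:46556163-46556412, minus strand; and chr14:20929148-20929397, plus strand. Capitals mark the CArG box, which starts 161 bases before the start of Myl9, 56 before that of Cnn2 and 227 before that of Vcl, while Srf has 2 boxes, the first 82 bases before its start. A match describes the letters and is not evidence of binding.
Myl9: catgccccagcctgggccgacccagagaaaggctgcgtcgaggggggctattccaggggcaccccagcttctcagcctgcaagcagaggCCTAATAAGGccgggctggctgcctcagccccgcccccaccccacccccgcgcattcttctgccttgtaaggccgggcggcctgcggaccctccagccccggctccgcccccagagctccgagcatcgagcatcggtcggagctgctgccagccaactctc
Cnn2: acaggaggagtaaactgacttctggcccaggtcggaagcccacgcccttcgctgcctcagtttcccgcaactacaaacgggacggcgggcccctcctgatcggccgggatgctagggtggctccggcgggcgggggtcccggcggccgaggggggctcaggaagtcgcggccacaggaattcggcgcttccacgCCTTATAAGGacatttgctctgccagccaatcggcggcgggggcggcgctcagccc
Srf: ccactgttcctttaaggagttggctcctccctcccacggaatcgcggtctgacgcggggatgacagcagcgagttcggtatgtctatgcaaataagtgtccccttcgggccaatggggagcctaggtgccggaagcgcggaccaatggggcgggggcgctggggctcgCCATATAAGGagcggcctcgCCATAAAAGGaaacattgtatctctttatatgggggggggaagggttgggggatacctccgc
Vcl: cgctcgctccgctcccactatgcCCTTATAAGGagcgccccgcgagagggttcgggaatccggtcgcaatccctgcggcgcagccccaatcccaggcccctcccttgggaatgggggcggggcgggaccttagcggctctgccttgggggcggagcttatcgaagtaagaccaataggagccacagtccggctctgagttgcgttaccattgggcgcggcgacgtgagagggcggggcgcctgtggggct

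Matrix genes fell with the contractile ones. Among 23 tested chains of fibrillar and network collagens, 17 fell and 1 rose, with a median log2 change of -2.61. Col8a1, a network-forming collagen of vessel walls and the cornea, had 124 and 109 CPM at D0 and 3.26 and 1.31 CPM at D7 (log2 change -5.41, SE 0.40, adjusted p = 2.11e-06). Col12a1, which decorates the surface of collagen I fibres, had 1701 and 1612 CPM at D0 and 34.6 and 51.3 CPM at D7 (log2 change -5.31, SE 0.34, adjusted p = 1.18e-06). The rise was that of Col26a1, 9.79 and 6.74 CPM at D0 and 45 and 89.4 CPM at D7 (log2 change 2.85, adjusted p = 0.000345), named after its value was seen. Col18a1, a basement membrane collagen and the source of endostatin, was not called (478 and 477 CPM at D0 and 291 and 371 CPM at D7, adjusted p = 0.11).

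The enzymes that make, crosslink and secrete collagen moved the same way, with 19 of 26 lower and none higher (median -1.69). The lysyl oxidases Lox, Loxl3 and Loxl1, which crosslink collagen and elastin, led the list. Lox had 757 and 748 CPM at D0 and 3.26 and 7.88 CPM at D7 (log2 change -7.27, SE 0.40, adjusted p = 5.16e-07). Loxl3 had 126 and 103 CPM at D0 and 6.35 and 3.04 CPM at D7 (log2 change -4.43). Loxl1 had 547 and 793 CPM at D0 and 23.1 and 57.8 CPM at D7 (log2 change -4.21). The prolyl hydroxylase subunit P4ha1, needed for a stable collagen helix, was not called (223 and 204 CPM at D0 and 170 and 139 CPM at D7, adjusted p = 0.199). Of 34 matrix glycoproteins and proteoglycans 25 fell and 2 rose (median -2.29). Ltbp2, a microfibril protein, had 359 and 395 CPM at D0 and 3.26 and 5.91 CPM at D7 (log2 change -6.47, SE 0.31, adjusted p = 5.16e-07). Fbln5, fibulin 5, which organises elastic fibres, had 153 and 136 CPM at D0 and 1.74 and 7.23 CPM at D7 (log2 change -5.36, SE 0.51, adjusted p = 1.24e-05). The 2 that rose, again named after the fact, were Spp1, osteopontin (49.9 and 61.4 CPM at D0 and 266 and 301 CPM at D7, log2 change 2.36), and the basement membrane linker Nid2 (183 and 236 CPM at D0 and 419 and 467 CPM at D7, log2 change 1.09). Fbln1 was not called (144 and 138 CPM at D0 and 128 and 227 CPM at D7). The Nid2 call was lost without the block (adjusted p = 0.0574) and without D0 replicate 1, D7 replicate 1 or D0 replicate 2 (adjusted p up to 0.121).

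Laminins form the core of basement membranes. Of 10 tested chains 2 rose (1 without D0 replicate 1, D7 replicate 1 or D0 replicate 2), or 1 without the block, 2 fell and 6 were not called, with a median of 0.12. Lama1, the alpha chain of the earliest embryonic basement membranes, had 2.94 and 8.23 CPM at D0 and 423 and 201 CPM at D7 (log2 change 5.86, SE 0.54, adjusted p = 9.41e-06). Lama2, the alpha chain of muscle, had 42.6 and 40.4 CPM at D0 and 3.48 and 2.63 CPM at D7 (log2 change -3.74, SE 0.44, adjusted p = 6.14e-05). Lama4, that of vessels and mesenchyme, had 158 and 95.8 CPM at D0 and 27.4 and 36.8 CPM at D7 (log2 change -1.99, SE 0.29, adjusted p = 0.000325). Lamc1, the gamma chain that most laminins share, had 441 and 534 CPM at D0 and 569 and 497 CPM at D7 and no call.

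Enzymes that cut the matrix, and their inhibitors, had 18 of 21 tested members lower and 1 higher (median -2.36). Adamts5, an aggrecan-cutting protease, had 41.1 and 46.4 CPM at D0 and 0.87 and 4.6 CPM at D7 (log2 change -4.37, SE 0.56, adjusted p = 0.000113). Plau, urokinase, had 223 and 212 CPM at D0 and 18.5 and 9.86 CPM at D7 (log2 change -3.78, SE 0.46, adjusted p = 7.7e-05). Mmp10, stromelysin 2, was the exception, with 0 CPM in both D0 libraries and 2.83 and 1.97 CPM at D7 (adjusted p = 0.0327, at least 2.95-fold higher), a level near the counting floor. Its call was lost without D0 replicate 1, D7 replicate 1 or D0 replicate 2 (adjusted p up to 0.18). Mmp19 had 6.55 and 6.74 CPM at D0 and 1.84 and 3.29 CPM at D7 and no call. Processed otherwise, the call was lost for Mmp10 at equal depth (adjusted p = 0.103).

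Receptors for the matrix fell as well. Of 14 tested integrin subunits 8 fell (5 without D7 replicate 1) and 1 rose (median -1.47). Itga3, the alpha chain of a laminin receptor, had 428 and 641 CPM at D0 and 58.1 and 58.5 CPM at D7 (log2 change -3.12, SE 0.26, adjusted p = 5.28e-06). Itga5, that of the fibronectin receptor, had 554 and 604 CPM at D0 and 73.7 and 93.3 CPM at D7 (log2 change -2.81, SE 0.33, adjusted p = 6.14e-05). Itgb3, the beta chain of the vitronectin receptor, had 49.9 and 58.4 CPM at D0 and 7.18 and 7.88 CPM at D7 (log2 change -2.77, SE 0.44, adjusted p = 0.000489). Itga9 was not called (24.5 and 21.7 CPM at D0 and 14.1 and 8.54 CPM at D7, adjusted p = 0.0726). The subunit that rose was Itga6, also a laminin receptor chain (39.4 and 75.6 CPM at D0 and 125 and 105 CPM at D7, log2 change 1.07), named after its value was seen. Its adjusted p was 0.129 without the block, and its call was lost without D0 replicate 1, D3 replicate 1, D7 replicate 1 or D3 replicate 2 (adjusted p up to 0.367).

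Caveolae, the flask-shaped pits of the cell surface, had 7 of 8 tested coat genes lower (median -3.98). Cav1, caveolin 1, had 319 and 245 CPM at D0 and 8.05 and 6.57 CPM at D7 (log2 change -5.20, SE 0.35, adjusted p = 1.24e-06). Cavin2 had 46 and 43.4 CPM at D0 and 1.96 and 0.657 CPM at D7 (log2 change -4.86, SE 0.54, adjusted p = 3.95e-05). Ehd2, the ATPase at the caveolar neck, had 217 and 322 CPM at D0 and 10 and 9.2 CPM at D7 (log2 change -4.70, SE 0.29, adjusted p = 9.42e-07). Pacsin3 was not called (19.1 and 18 CPM at D0 and 11.5 and 9.86 CPM at D7). Targets of YAP, a co-activator that responds to tension and cell density, fell in 15 of 19 cases with none higher (median -1.58). Ankrd1 had 211 and 235 CPM at D0 and 1.09 and 9.2 CPM at D7 (log2 change -6.02, SE 0.57, adjusted p = 1.24e-05), the matricellular protein Ccn1 1309 and 1542 CPM at D0 and 24.1 and 102 CPM at D7 (log2 change -4.85, SE 0.49, adjusted p = 1.84e-05), and the receptor kinase Axl 668 and 915 CPM at D0 and 28.5 and 34.2 CPM at D7 (log2 change -4.61, SE 0.31, adjusted p = 1.18e-06). Tead1, a DNA-binding partner of YAP, was not called (386 and 416 CPM at D0 and 252 and 183 CPM at D7, adjusted p = 0.0659).

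**Figure D3:**
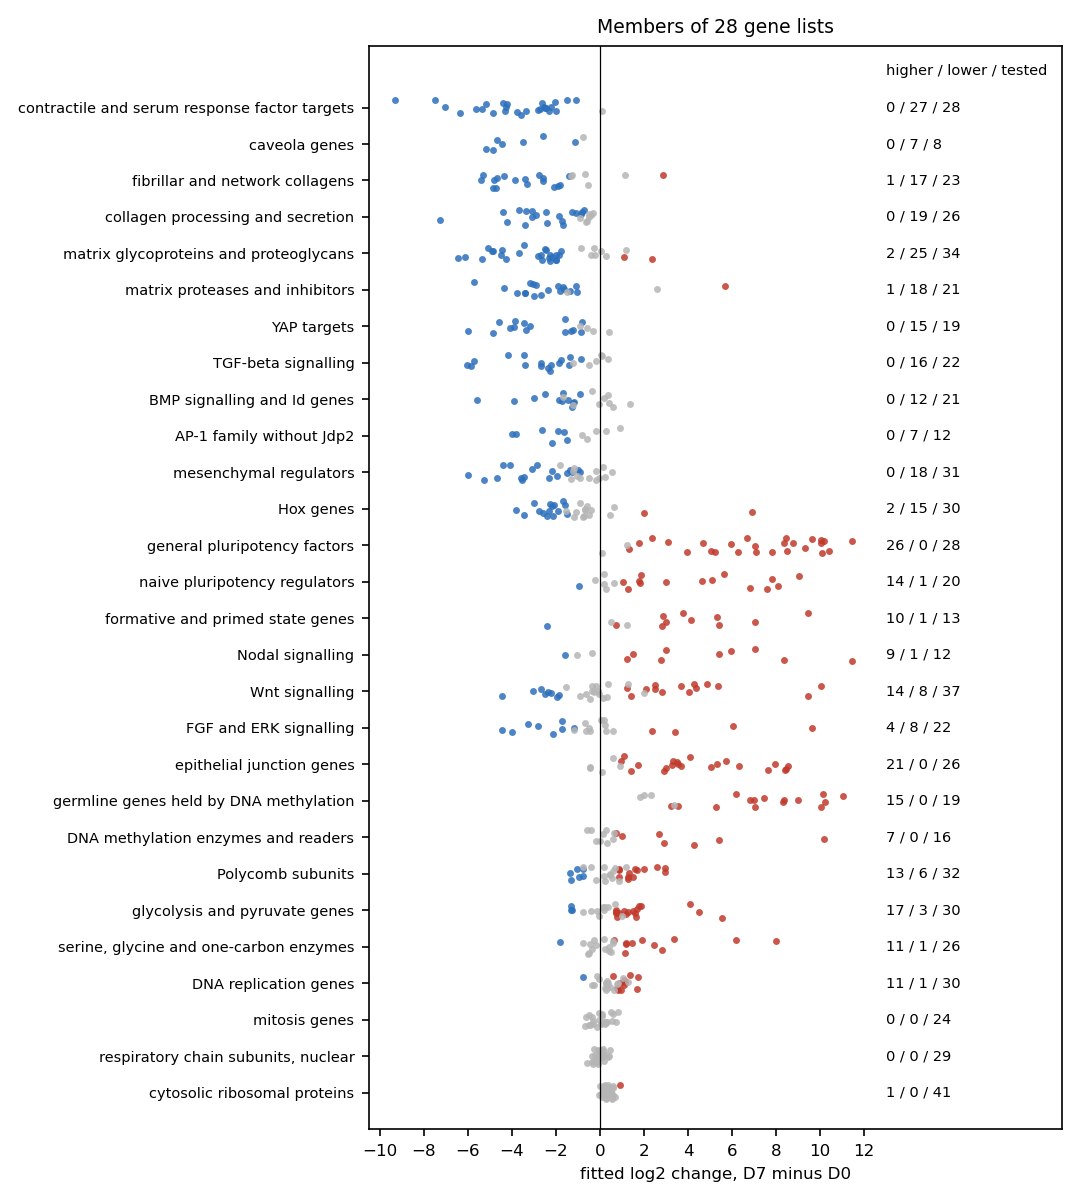
Fitted log2 change from D0 to D7 of each tested member of 28 of the 61 gene lists (1 point a gene, random vertical offset; red called higher, blue called lower, grey not called), with the counts called higher, called lower and tested at the right. Contractile genes (27 of 28 lower) and general pluripotency factors (26 of 28 higher) lie on opposite sides of 0, while mitosis genes and nuclear respiratory chain subunits have no coloured point; fitted values of genes with few counts at D0 depend on the prior count and are not bounds.

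Regulators of mesenchymal identity fell in part. Of 31 tested, 18 were lower (11 without D0 replicate 1) and none higher (median -1.34). Foxc2, a forkhead factor of mesenchyme and vessels, had 159 and 156 CPM at D0 and 6.09 and 5.91 CPM at D7 (log2 change -4.66, SE 0.39, adjusted p = 5.07e-06). Osr1, a factor of connective tissue progenitors, had 91.5 and 75.6 CPM at D0 and 2.61 and 6.57 CPM at D7 (log2 change -4.42, SE 0.65, adjusted p = 0.00032). Runx2, the master factor of bone, had 17.2 and 36.7 CPM at D0 and 1.74 and 0 CPM at D7 (log2 change -4.08, SE 0.70, adjusted p = 0.000951). Lhx9, a limb and gonad factor, had 14.2 and 14.2 CPM at D0 and 0.218 and 0 CPM at D7 (ratio 0.0115, 95% counting interval 0.000285 to 0.0673, adjusted p = 0.000689). Ebf2 had 9.3 and 6.74 CPM at D0 and 0.218 and 0 CPM at D7 (ratio 0.0197, 95% counting interval 0.000482 to 0.119, adjusted p = 0.0041), a call lost without D7 replicate 1 (adjusted p = 0.0659). Tcf4, an E protein that is broadly expressed, had 114 and 123 CPM at D0 and 121 and 104 CPM at D7 and no call. Cell adhesion molecules of mesenchyme had 6 of 9 lower and none higher (median -1.66): Vcam1 had 66.1 and 50.1 CPM at D0 and 3.7 and 7.23 CPM at D7 (log2 change -3.56, SE 0.44, adjusted p = 9.21e-05). Cdh13 had 21 and 32.2 CPM at D0 and 3.92 and 3.94 CPM at D7 (log2 change -2.63). Ncam1 had 159 and 187 CPM at D0 and 35.2 and 38.8 CPM at D7 (log2 change -2.24). N-cadherin (Cdh2) was not called (78.8 and 126 CPM at D0 and 79.2 and 79.5 CPM at D7, adjusted p = 0.38).

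Hox genes, which mark position along the body and limb axes, had 15 of 30 tested members lower (6 without D0 replicate 1 and 7 without D7 replicate 1) and 2 higher (0 without D0 replicate 1, D7 replicate 1 or D0 replicate 2 and 1 without D7 replicate 2) (median -1.53). Hoxd13, of the distal limb, had 41.1 and 39.7 CPM at D0 and 1.96 and 4.6 CPM at D7 (log2 change -3.83, SE 0.42, adjusted p = 3.49e-05). Hoxc8, of the trunk, had 40.6 and 26.2 CPM at D0 and 2.61 and 3.94 CPM at D7 (log2 change -3.45, SE 0.47, adjusted p = 0.00018). Hoxd12 had 11.7 and 10.5 CPM at D0 and 1.31 and 1.31 CPM at D7 (log2 change -3.0, SE 0.66, adjusted p = 0.00459). Of 6 tested members of the Hoxd cluster 5 fell, which was counted after the values were seen. Hoxb13, of the tail end of the body, had 0 CPM in both D0 libraries and 7.18 and 3.29 CPM at D7 (adjusted p = 0.0221, at least 7-fold higher). Hoxa10 was not called (43.1 and 37.4 CPM at D0 and 19.1 and 32.2 CPM at D7). Leaving out a library ended the call for Hoxd12 without D0 replicate 1 or D7 replicate 1 (adjusted p up to 0.0847) and Hoxb13 without D0 replicate 1, D7 replicate 1 or D0 replicate 2 (adjusted p up to 0.153).

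General pluripotency factors rose in 26 of 28 tested cases, with none lower and a median log2 change of 4.95. Of the 28, 17 had 3 counts or fewer at D0 and passed the filter on low counts only through later days, so the count of rises was in part fixed by the filter. The same holds for each list below in which such members are counted. Pou5f1, which encodes Oct4, had 0 and 3.74 CPM at D0 and 335 and 327 CPM at D7 (log2 change 7.81, SE 0.81, adjusted p = 2.34e-05). L1td1, an RNA-binding protein of stem cells derived from a retroelement, had 1.47 and 1.5 CPM at D0 and 194 and 88.7 CPM at D7 (log2 change 6.68, SE 0.48, adjusted p = 1.81e-06). Dppa5a, another RNA-binding protein of pluripotent cells, had 0 and 0.748 CPM at D0 and 358 and 310 CPM at D7 (ratio 1170, 95% counting interval 210 to 46254, adjusted p = 1.61e-06). Nanog had 0 and 1.5 CPM at D0 and 227 and 159 CPM at D7 (ratio 355, 95% counting interval 98 to 2931, adjusted p = 1.13e-05). At D7 Dppa5a stood at 1131 and 1049 TPM, Pou5f1 at 417 and 399 TPM, Nanog at 167 and 113 TPM and Sox2 at 165 and 108 TPM, in that order in both libraries. Zfp281 was not called (54.8 and 55.4 CPM at D0 and 73.5 and 46 CPM at D7, adjusted p = 0.87). Both D7 libraries lay above both D0 libraries in each of the 4 named genes that rose, which their choice as called genes largely fixed.

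Naive pluripotency regulators, which keep cells in the state of the early epiblast, had 14 of 20 tested members higher (8 without D0 replicate 1) and 1 lower (median 1.83), and 7 of the 20 had 3 counts or fewer at D0. Tfcp2l1, a factor downstream of LIF and Wnt, had 4.4 and 3.74 CPM at D0 and 216 and 165 CPM at D7 (log2 change 5.65, SE 0.47, adjusted p = 5.11e-06). Klf2 had 11.3 and 20.2 CPM at D0 and 116 and 126 CPM at D7 (log2 change 2.98, SE 0.34, adjusted p = 4.99e-05). Socs3, the feedback inhibitor of LIF signalling, had 20.5 and 26.9 CPM at D0 and 67 and 108 CPM at D7 (log2 change 1.85, SE 0.24, adjusted p = 0.00014). Fbxo15 had 0.489 and 0 CPM at D0 and 101 and 38.1 CPM at D7 (ratio 288, 95% counting interval 51.5 to 11411, adjusted p = 8.6e-06). Pecam1, a surface protein of naive cells and of endothelium, had 0.489 and 0.748 CPM at D0 and 69 and 67 CPM at D7 (ratio 116, 95% counting interval 31.8 to 959, adjusted p = 2.6e-05). Stat3, the transducer of LIF, was not called (161 and 183 CPM at D0 and 134 and 160 CPM at D7, adjusted p = 0.476), and the LIF co-receptor Il6st fell (234 and 260 CPM at D0 and 128 and 129 CPM at D7, log2 change -0.94, named after its value was seen). The Il6st call was lost without the block (adjusted p = 0.0659) and without D0 replicate 1, D1 replicate 1, D7 replicate 1, D0 replicate 2 or D7 replicate 2 (adjusted p up to 0.159).

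Genes of the formative and primed states, which follow the naive state in the embryo, had 10 of 13 tested members higher (4 without D0 replicate 1) and 1 lower (median 2.86), and 4 of the 13 had 3 counts or fewer at D0. Dnmt3b, a de novo DNA methyltransferase, had 4.89 and 0.748 CPM at D0 and 185 and 78.2 CPM at D7 (log2 change 5.39, SE 0.44, adjusted p = 4.23e-06). Zic5 had 1.47 and 1.5 CPM at D0 and 24.1 and 15.8 CPM at D7 (log2 change 3.76, SE 0.74, adjusted p = 0.00228). T (brachyury), a T-box factor of the primitive streak, had 0 CPM in both D0 libraries and 45.2 and 22.3 CPM at D7 (adjusted p = 8.84e-05, at least 44.6-fold higher). Otx2, Fgf5, Fgf15 and Cer1 of the same list had too few counts to be tested. Sall2 had 29.4 and 31.4 CPM at D0 and 42.6 and 44 CPM at D7 and no call, and the member that fell was Pou3f1 (16.1 and 8.23 CPM at D0 and 1.74 and 3.29 CPM at D7, log2 change -2.43). Single libraries ended the call for Zic5 without D0 replicate 1 (adjusted p = 0.0786) and Pou3f1 without D0 replicate 1, D7 replicate 1 or D7 replicate 2 (adjusted p up to 0.384), and for Pou3f1 without the block (adjusted p = 0.0645).

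Epithelial junction genes had 21 of 26 tested members higher (12 without D0 replicate 1) and none lower (median 3.15), and 11 of the 26 had 3 counts or fewer at D0. Dsg2, a desmosomal cadherin, had 1.96 and 0.748 CPM at D0 and 78.1 and 74.3 CPM at D7 (log2 change 5.74, SE 0.58, adjusted p = 1.92e-05). Cldn4, a tight junction claudin, had 2.94 and 2.99 CPM at D0 and 34.4 and 72.3 CPM at D7 (log2 change 4.11, SE 0.51, adjusted p = 9.21e-05). Spint1, an inhibitor of epithelial surface proteases, had 2.45 and 2.99 CPM at D0 and 33.1 and 36.8 CPM at D7 (log2 change 3.67, SE 0.47, adjusted p = 0.000116). Epcam had 0 and 0.748 CPM at D0 and 141 and 104 CPM at D7 (ratio 446, 95% counting interval 79.9 to 17650, adjusted p = 7.41e-06). Tjp3, a tight junction scaffold, had 0 CPM in both D0 libraries and 20.7 and 14.5 CPM at D7 (adjusted p = 0.00078, at least 21.5-fold higher). Tjp1, the scaffold ZO-1 that fibroblasts also carry, was not called (238 and 253 CPM at D0 and 290 and 237 CPM at D7, adjusted p = 0.869). Of 4 tested simple epithelial keratins, Krt8 rose (9.79 and 8.23 CPM at D0 and 32.6 and 23 CPM at D7, log2 change 1.68) and Krt7 fell (16.1 and 19.5 CPM at D0 and 2.61 and 2.63 CPM at D7, log2 change -2.71), while Krt18 was not called (31.8 and 74.1 CPM at D0 and 53.9 and 61.1 CPM at D7). The Krt8 call was lost without the block (adjusted p = 0.0852) and without D0 replicate 1, D7 replicate 1 or D0 replicate 2 (adjusted p up to 0.381). Other settings gave no call for Krt8 with limma-voom (adjusted p = 0.0561).

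Splicing regulators were for the most part not called, with 2 of 21 higher (1 without D0 replicate 1 and 4 without D5 replicate 1) and 2 lower (4 without D5 replicate 2) (median -0.02), and the 4 called are factors that set cell-type splicing patterns. Esrp1, an epithelial splicing regulator, had 0 CPM in both D0 libraries and 17 and 5.26 CPM at D7 (adjusted p = 0.00165, at least 15.8-fold higher). Rbm47 had 1.96 and 5.24 CPM at D0 and 27.4 and 19.1 CPM at D7 (log2 change 2.83, SE 0.48, adjusted p = 0.000795). Mbnl1 and Mbnl2 are muscleblind proteins, known to repress splicing patterns of pluripotent cells. Mbnl1 had 132 and 126 CPM at D0 and 20.2 and 19.1 CPM at D7 (log2 change -2.73, SE 0.29, adjusted p = 2.41e-05). In Mbnl2 the values were 365 and 320 CPM at D0 and 84.2 and 94 CPM at D7 (log2 change -1.95, SE 0.32, adjusted p = 0.000737). Hnrnpa1 was not called (950 and 818 CPM at D0 and 1328 and 1022 CPM at D7). The Esrp1 call was lost without D0 replicate 1 (adjusted p = 0.0871).

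**Figure D4:**
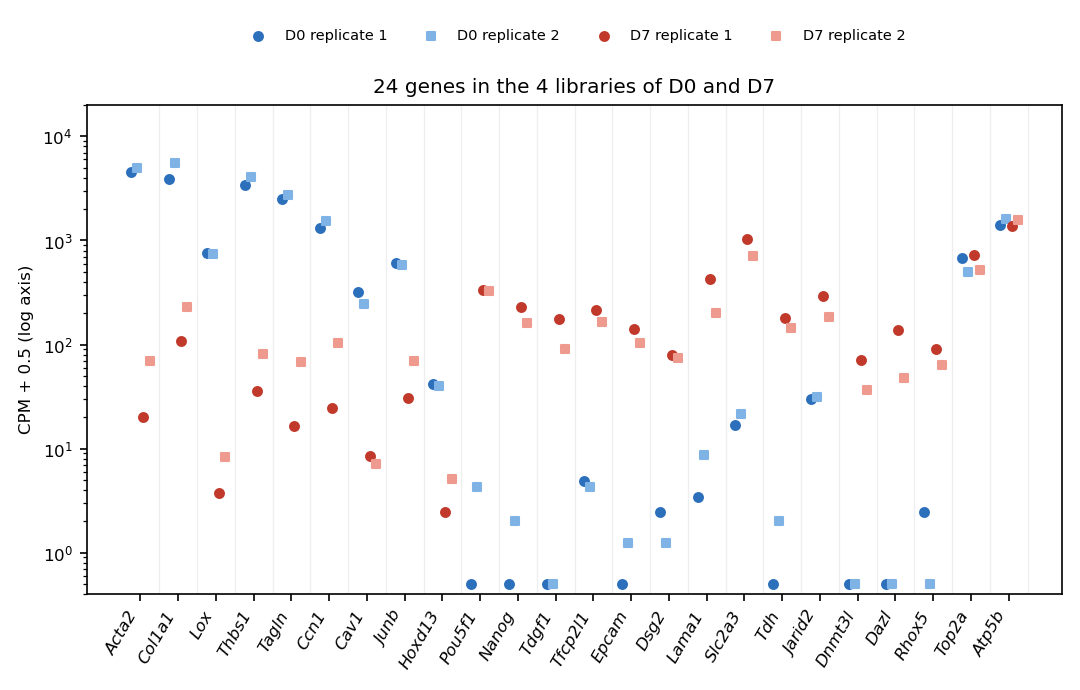
Levels of 24 named genes in the 4 libraries, as CPM plus 0.5 on a log axis; circles are replicate 1 and squares replicate 2, blue D0 and red D7. The first 9 genes fall and the next 13 rise with no overlap between days, and Top2a and Atp5b at the right overlap. The genes were picked with their calls known, so this carries no test. A symbol at 0.5 is a library with no count.

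Among signalling pathways, TGF-beta and Nodal went opposite ways although both signal through Smad2 and Smad3. Of 22 TGF-beta members 16 fell and none rose (median -2.03). Inhba, which forms activin A, had 300 and 273 CPM at D0 and 4.57 and 3.29 CPM at D7 (log2 change -6.03, SE 0.47, adjusted p = 3.3e-06). Tgfb1i1, a focal adhesion protein induced by TGF-beta, had 193 and 173 CPM at D0 and 2.39 and 4.6 CPM at D7 (log2 change -5.85, SE 0.52, adjusted p = 7.87e-06). Ligands Tgfb1, Tgfb2 and Tgfb3 were all among those that fell, and Skil, a repressor of Smad proteins, was not called (77.8 and 70.4 CPM at D0 and 87.2 and 65.7 CPM at D7). Of 12 tested Nodal genes 9 rose and 1 fell (median 2.89), and 5 of the 12 had 3 counts or fewer at D0. Tdgf1 (Cripto), the co-receptor, had 0 CPM in both D0 libraries and 174 and 89.4 CPM at D7 (adjusted p = 2.46e-06, at least 173-fold higher), and lies at chr9:110939603-110946158 on GRCm38. Lefty2, a secreted inhibitor of Nodal, had 0 and 0.748 CPM at D0 and 43.7 and 38.1 CPM at D7 (ratio 143, 95% counting interval 25.5 to 5672, adjusted p = 0.000171). Lefty1 had 0 and 4.49 CPM at D0 and 17.2 and 12.5 CPM at D7 (log2 change 3.0, SE 0.96, adjusted p = 0.034). Acvr2b, a type II receptor, had 3.91 and 2.99 CPM at D0 and 18.9 and 30.9 CPM at D7 (log2 change 2.77, SE 0.54, adjusted p = 0.00223), whereas Acvr2a was not called (22.8 and 22.1 CPM at D0 and 20.7 and 15.1 CPM at D7). Furin, a convertase that cuts the Nodal precursor, fell (123 and 261 CPM at D0 and 44.6 and 79.5 CPM at D7, log2 change -1.58, adjusted p = 0.000295). Furin was not called without the block (adjusted p = 0.0861), nor was Lefty1 (adjusted p = 0.0918), whose call was also lost without D0 replicate 1, D7 replicate 1 or D7 replicate 2 (adjusted p up to 0.311). The call of Tgfb1 was lost without the block (adjusted p = 0.189) and without D0 replicate 1 or D7 replicate 2 (adjusted p up to 0.103). The difference between the 2 lists was not tested. Another tool or filter ended the call of Lefty1 with DESeq2 (adjusted p = 0.174) and at equal depth (adjusted p = 0.0599).

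BMP members and Id genes had 12 of 21 lower (4 without D0 replicate 1 and 6 without D7 replicate 1) and none higher (1 without D5 replicate 1 or D5 replicate 2) (median -1.24), or 8 lower without the block. Gdf6, a ligand of the BMP family, had 18.1 and 17.2 CPM at D0 and 0.435 and 2.63 CPM at D7 (log2 change -3.92, SE 0.84, adjusted p = 0.00409). Bmper, a BMP-binding endothelial regulator, had 18.6 and 24.7 CPM at D0 and 2.83 and 2.63 CPM at D7 (log2 change -2.98, SE 0.75, adjusted p = 0.0102). Smad5, a BMP transducer, was not called (98.8 and 100 CPM at D0 and 131 and 97.9 CPM at D7). The call did not hold for Gdf6 without D0 replicate 1 or D7 replicate 1 (adjusted p up to 0.0848) and Bmper without D7 replicate 1, D0 replicate 2 or D7 replicate 2 (adjusted p up to 0.101).

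Wnt signalling, which the naive state is known to depend on, had 14 of 37 tested members higher and 8 lower (median 0.14), and 4 of the 37 had 3 counts or fewer at D0. Notum, Axin2, Nkd1, Rnf43, Znrf3, Sp5, Lef1 and Tcf7, which are targets, feedback inhibitors or nuclear factors of the canonical pathway, were higher. The ligands Wnt2b, Wnt5a and Wnt9a, the receptors Fzd1 and Fzd2 and the secreted antagonists Dkk2, Dkk3 and Sfrp1 were lower. The receptor Fzd10 and the secreted antagonist Frzb went against this grouping by role, which was made after the values were seen, and were higher. Notum, an enzyme that inactivates Wnt proteins, had 1.47 and 1.5 CPM at D0 and 31.7 and 64.7 CPM at D7 (log2 change 4.86, SE 0.45, adjusted p = 1.09e-05). Fzd10 had 2.45 and 1.5 CPM at D0 and 76.8 and 103 CPM at D7 (log2 change 5.36, SE 0.41, adjusted p = 2.56e-06). Cdx1, a homeobox target of Wnt, had 0 CPM in both D0 libraries and 60.5 and 44 CPM at D7 (adjusted p = 2.11e-05, at least 63.5-fold higher). Wnt2b had 50.4 and 69.6 CPM at D0 and 1.96 and 3.94 CPM at D7 (log2 change -4.47, SE 0.43, adjusted p = 1.22e-05), and the co-receptor Lrp6 127 and 124 CPM at D0 and 86.6 and 110 CPM at D7, with no call. Of the ligands, Wnt5b was the member that rose (3.91 and 0.748 CPM at D0 and 13.3 and 17.7 CPM at D7, log2 change 2.52). Among these, the call ended for Wnt5b without D7 replicate 1, D0 replicate 2 or D7 replicate 2 (adjusted p up to 0.1), Dkk2 whichever of the 4 libraries was left out (adjusted p up to 0.0725), Frzb whichever of the 4 libraries was left out (adjusted p up to 0.191), Rnf43 without D0 replicate 1 (adjusted p = 0.0646), Wnt9a without D0 replicate 1, D1 replicate 1, D3 replicate 1, D7 replicate 1, D0 replicate 2, D1 replicate 2, D3 replicate 2 or D7 replicate 2 (adjusted p up to 0.275) and Znrf3 without D0 replicate 1 or D7 replicate 1 (adjusted p up to 0.0759). Without the block Frzb (adjusted p = 0.0638) and Wnt9a (adjusted p = 0.0682) were not called. A change of setting ended the call of Frzb with DESeq2 (adjusted p = 0.0752) and Wnt9a with no filter (adjusted p = 0.0682) and with DESeq2 (adjusted p = 0.102).

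Of 22 tested genes of FGF and ERK signalling 4 rose (2 without D0 replicate 1, D7 replicate 1 or D0 replicate 2) and 8 fell (5 without D0 replicate 1 or D7 replicate 2) (median -0.56), and 3 of the 22 had 3 counts or fewer at D0. Fgf4, the ligand that pluripotent cells make, had 0 CPM in both D0 libraries and 40.2 and 35.5 CPM at D7 (adjusted p = 8.62e-05, at least 44-fold higher). Fgf17 had 0.979 and 0 CPM at D0 and 7.18 and 5.91 CPM at D7 (ratio 11.6, 95% counting interval 3.02 to 98.9, adjusted p = 0.0229). Fgf7, a ligand made by mesenchyme for epithelia, had 18.1 and 13.5 CPM at D0 and 0.653 and 0.657 CPM at D7 (log2 change -4.46, SE 1.0, adjusted p = 0.00604). Egr1, an immediate early target of ERK, had 238 and 294 CPM at D0 and 12.6 and 61.8 CPM at D7 (log2 change -3.25, SE 0.40, adjusted p = 8.84e-05). Spred1, an inhibitor of the pathway, was not called (217 and 134 CPM at D0 and 151 and 95.3 CPM at D7). Calls were lost for Fgf17 without D0 replicate 1, D7 replicate 1 or D0 replicate 2 (adjusted p up to 0.126) and Fgf7 without D0 replicate 1, D7 replicate 1 or D7 replicate 2 (adjusted p up to 0.189). Of 21 genes of PDGF, IGF and insulin signalling 3 rose and 9 fell (14 without D5 replicate 2) (median -0.99). Kit, the receptor of stem cell factor, had 1.47 and 1.5 CPM at D0 and 104 and 67 CPM at D7 (log2 change 5.87, SE 0.39, adjusted p = 1.18e-06). Pdgfrb, a PDGF receptor of mesenchyme, had 452 and 432 CPM at D0 and 37.9 and 48.6 CPM at D7 (log2 change -3.38, SE 0.27, adjusted p = 3.3e-06). Igfbp6 had 18.6 and 15 CPM at D0 and 0.87 and 3.29 CPM at D7 (log2 change -3.36, SE 0.76, adjusted p = 0.00542), a call lost without D0 replicate 1 or D7 replicate 1 (adjusted p up to 0.133). The others that rose were Igf1 (12.2 and 10.5 CPM at D0 and 28.1 and 25 CPM at D7, log2 change 1.22) and Igfbp2 (194 and 201 CPM at D0 and 466 and 638 CPM at D7, log2 change 1.46), and Igf2r was not called (629 and 747 CPM at D0 and 339 and 506 CPM at D7). The Igf1 call was lost without D0 replicate 1, D7 replicate 1 or D0 replicate 2 (adjusted p up to 0.153). Processed otherwise, the call was lost for Fgf17 with limma-voom (adjusted p = 0.052).

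Notch and hedgehog members had 3 of 17 higher (7 without D5 replicate 1 or D5 replicate 2) and 4 lower (1 without D0 replicate 1 or D7 replicate 1) (median 0.67), and 4 of the 17 had 3 counts or fewer at D0. Hhip, an inhibitor that binds hedgehog ligands, had 46.4 and 34.4 CPM at D0 and 4.79 and 7.23 CPM at D7 (log2 change -2.84, SE 0.41, adjusted p = 0.000266). The Notch target Hey1 had 2.45 and 8.23 CPM at D0 and 20.7 and 27.6 CPM at D7 (log2 change 2.35, SE 0.42, adjusted p = 0.00123). Hes1, another target of Notch, had 88.1 and 94.3 CPM at D0 and 25.9 and 35.5 CPM at D7 (log2 change -1.60, SE 0.35, adjusted p = 0.00442), in the opposite direction. The Notch ligand Dll3 had 0 CPM in both D0 libraries and 7.18 and 1.31 CPM at D7 (adjusted p = 0.032, at least 6.44-fold higher). Gli3, a transducer of hedgehog signals, was not called (93.9 and 126 CPM at D0 and 38.9 and 88 CPM at D7, adjusted p = 0.0536). The call of Dll3 was lost without the block (adjusted p = 0.0516), and single libraries ended the calls of Hes1 without D0 replicate 1 or D7 replicate 1 (adjusted p up to 0.0754) and Dll3 without D0 replicate 1, D7 replicate 1 or D0 replicate 2 (adjusted p up to 0.324). Other settings gave no call for Dll3 at equal depth (adjusted p = 0.0644).

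**Figure D5:**
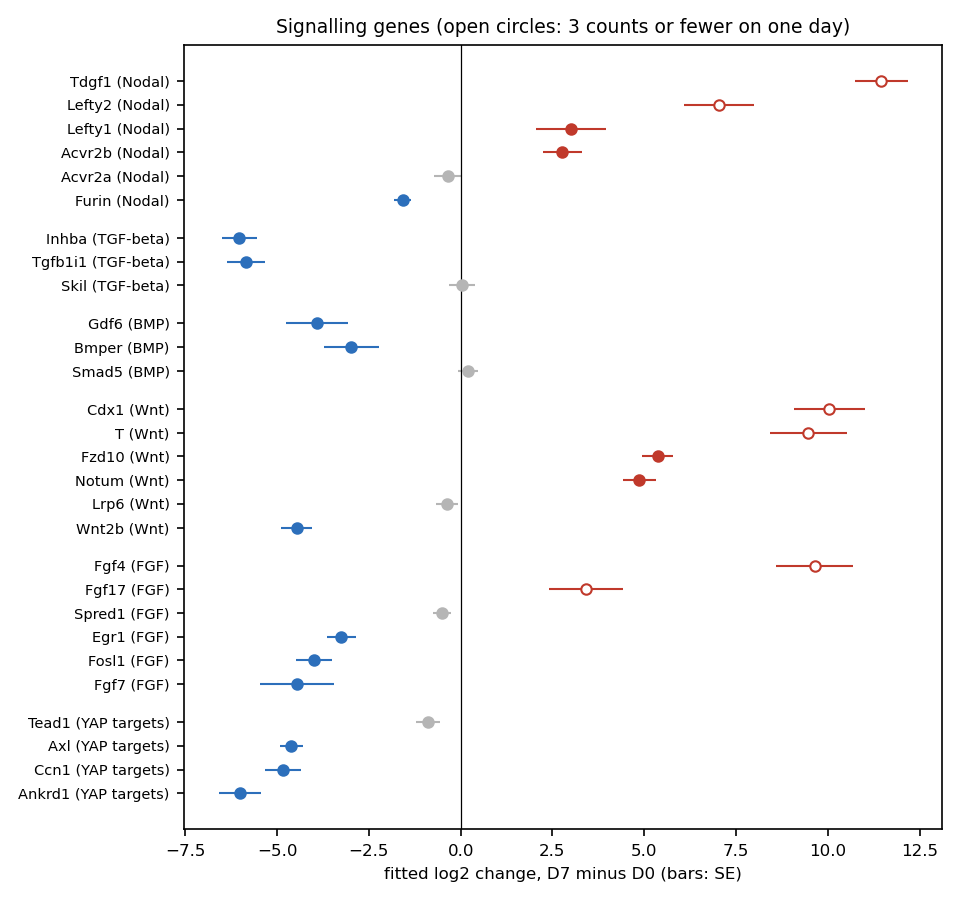
Fitted log2 change from D0 to D7 (points) with its SE (bars) for the named genes of 6 signalling lists; red is called higher, blue called lower, grey not called, and open circles have 3 counts or fewer on one of the 2 days. Nodal members lie mostly right of 0, with Furin on the left, and TGF-beta and BMP members at or left of it.

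AP-1 genes, without the delivered Jdp2, had 7 of 12 tested members lower (3 without D0 replicate 1) and none higher (1 without D5 replicate 1 or D5 replicate 2) (median -1.57), or 4 lower without the block. Fosl1 had 32.8 and 37.4 CPM at D0 and 1.74 and 2.63 CPM at D7 (log2 change -4.0, SE 0.49, adjusted p = 7.82e-05). Junb had 607 and 577 CPM at D0 and 30.2 and 69.7 CPM at D7 (log2 change -3.81, SE 0.46, adjusted p = 7.23e-05). Fosl2 had 64.1 and 67.4 CPM at D0 and 7.61 and 15.8 CPM at D7 (log2 change -2.63, SE 0.35, adjusted p = 0.000149). Jund, which is less inducible than its relatives, was not called (234 and 336 CPM at D0 and 116 and 300 CPM at D7, adjusted p = 0.208), and its 2 libraries of D7 differed from each other more than those of D0. Jun and Fos were also among those that fell, without the block at adjusted p = 0.0715 and 0.116. Leaving out a library ended the call for Jun without D0 replicate 1 (adjusted p = 0.0531) and Fos without D0 replicate 1 or D7 replicate 1 (adjusted p up to 0.193). The AP-1 motif TGANTCA (both strands) was in none of the 12 family promoters of the table. It was in 4 of the 13 promoters of matrix proteases and inhibitors, 30.8%, those of Adam19, Mmp10, Mmp13 and Mmp3, against 2425 of 27025 genes, 8.97%. Of these 4 genes Adam19 fell, Mmp10 rose, Mmp3 was not called and Mmp13 was not tested. The Adam19 call was lost without D7 replicate 2 (adjusted p = 0.0516).

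Inflammatory and secreted factors had 9 of 15 tested members lower and 2 higher (1 without D0 replicate 1, D7 replicate 1, D0 replicate 2 or D7 replicate 2) (median -1.67). Ccl2, a chemokine for monocytes, had 211 and 252 CPM at D0 and 2.18 and 6.57 CPM at D7 (log2 change -6.01, SE 0.59, adjusted p = 1.49e-05). Ptgs2, the inducible cyclooxygenase, had 103 and 103 CPM at D0 and 1.31 and 2.63 CPM at D7 (log2 change -5.84, SE 0.41, adjusted p = 1.52e-06). Il11 had 74.9 and 118 CPM at D0 and 2.61 and 0.657 CPM at D7 (log2 change -5.30, SE 0.82, adjusted p = 0.000447). Ccl7 had 41.1 and 22.5 CPM at D0 and 0.218 and 0 CPM at D7 (ratio 0.00485, 95% counting interval 0.000122 to 0.0275, adjusted p = 0.000338), and the receptor Il1rl1 19.6 and 18.7 CPM at D0 and 0.435 and 0 CPM at D7 (ratio 0.017, 95% counting interval 0.00202 to 0.0639, adjusted p = 0.000654). Those that rose, named after their values were seen, were Vegfa, the growth factor of vessels (93 and 115 CPM at D0 and 233 and 237 CPM at D7, log2 change 1.19), and Angptl4 (1.96 and 1.5 CPM at D0 and 5.87 and 13.1 CPM at D7, log2 change 2.30). Cxcl14 was not called (25.9 and 15 CPM at D0 and 4.35 and 12.5 CPM at D7). Single libraries ended the call for Vegfa without D7 replicate 1 (adjusted p = 0.051) and Angptl4 without D0 replicate 1, D0 replicate 2 or D7 replicate 2 (adjusted p up to 0.214). Another tool or filter ended the call of Angptl4 with DESeq2 (adjusted p = 0.053) and with limma-voom (adjusted p = 0.0616).

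Interferon-stimulated genes had 6 of 24 higher (1 without D0 replicate 1 and 3 without D7 replicate 1, D0 replicate 2 or D7 replicate 2) and 3 lower (median 0.12), and no common direction. Ifitm1, a membrane protein that blocks viral entry and is also made in early embryos and germ cells, had 6.85 and 5.24 CPM at D0 and 116 and 106 CPM at D7 (log2 change 4.16, SE 0.32, adjusted p = 2.76e-06). Ifit2 had 32.8 and 45.7 CPM at D0 and 5.66 and 9.2 CPM at D7 (log2 change -2.48, SE 0.44, adjusted p = 0.00112) and Ifitm2 was not called (155 and 179 CPM at D0 and 182 and 207 CPM at D7). Oas1a (0 and 3.74 CPM at D0 and 13.3 and 7.66 CPM at D7, log2 change 2.74, SE 0.90, adjusted p = 0.038) and Rtp4 (0.489 and 0.748 CPM at D0 and 8.92 and 3.94 CPM at D7, ratio 13, 95% counting interval 3.4 to 110, adjusted p = 0.0284) were called near the counting floor. The call did not hold for Oas1a without D0 replicate 1, D7 replicate 1 or D7 replicate 2 (adjusted p up to 0.364) and Rtp4 without D0 replicate 1, D7 replicate 1 or D0 replicate 2 (adjusted p up to 0.255). The call of Oas1a was also lost without the block (adjusted p = 0.0805).

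Glycolysis and pyruvate genes had 17 of 30 higher (8 without D0 replicate 1, 9 without D7 replicate 1 and 11 without D0 replicate 2 or D7 replicate 2) and 3 lower (0 without D0 replicate 1 or D7 replicate 2 and 1 without D0 replicate 2) (median 0.76), or 11 and 2 without the block, and their summed level was 11688 and 17895 CPM at D0 and 21520 and 23250 CPM at D7. Aldoc, an aldolase, had 4.4 and 4.49 CPM at D0 and 119 and 78.2 CPM at D7 (log2 change 4.48, SE 0.44, adjusted p = 1.46e-05). Pdk1, a kinase that holds pyruvate back from mitochondria, had 23 and 15.7 CPM at D0 and 414 and 260 CPM at D7 (log2 change 4.11, SE 0.32, adjusted p = 2.95e-06). The 3 that fell, named after their values were seen, were Pdk4, another such kinase (log2 change -1.31), the muscle enolase Eno3 (-1.30) and the mitochondrial pyruvate carrier subunit Mpc1 (-1.28). Among these, the call ended for Pdk4 without D0 replicate 1 or D7 replicate 2 (adjusted p up to 0.106), Eno3 whichever of the 4 libraries was left out (adjusted p up to 0.148) and Mpc1 without D0 replicate 1, D0 replicate 2 or D7 replicate 2 (adjusted p up to 0.211), and for Eno3 without the block (adjusted p = 0.0739). Respiratory chain subunits encoded in the nucleus had 0 calls among 29 with edgeR (median -0.06). At an unadjusted p under 0.05 there were 1, with DESeq2 0 and with limma-voom 0. Without D5 replicate 1 edgeR called 1 higher, and without D5 replicate 2 it called 1 lower. Atp5b, a subunit of ATP synthase, stood at 1423 and 1623 CPM at D0 and 1392 and 1586 CPM at D7. A change of setting ended the call of Eno3 with DESeq2 (adjusted p = 0.0613).

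Serine, glycine and one-carbon enzymes had 11 of 26 higher (7 without D0 replicate 1) and 1 lower (0 without D0 replicate 1, D7 replicate 1 or D0 replicate 2 and 2 without D5 replicate 2) (median 0.54). Among the rises were enzymes that break down threonine and glycine. Tdh, threonine dehydrogenase, on which mouse embryonic stem cells are known to depend, had 0 and 1.5 CPM at D0 and 181 and 143 CPM at D7 (ratio 289, 95% counting interval 79.9 to 2393, adjusted p = 1.52e-06). Gldc and Amt are subunits of the glycine cleavage system. Gldc had 1.47 and 2.99 CPM at D0 and 164 and 143 CPM at D7 (log2 change 6.17, SE 0.50, adjusted p = 3.81e-06). In Amt the values were 4.89 and 2.99 CPM at D0 and 41.8 and 43.4 CPM at D7 (log2 change 3.38, SE 0.43, adjusted p = 0.000115). Cbs, of the transsulfuration pathway, had 5.87 and 2.25 CPM at D0 and 33.3 and 28.3 CPM at D7 (log2 change 2.84, SE 0.40, adjusted p = 0.000212). Psat1, of serine synthesis, was not called (251 and 280 CPM at D0 and 212 and 264 CPM at D7, adjusted p = 0.624), nor were Phgdh and Psph of the same route. The member that fell was Aldh1l2 (log2 change -1.81), a call lost without D0 replicate 1, D7 replicate 1 or D0 replicate 2 (adjusted p up to 0.199).

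Cholesterol synthesis genes had 11 of 24 higher (2 without D7 replicate 1, 3 without D0 replicate 2 and 4 without D0 replicate 1) and none lower (1 without D7 replicate 1) (median 0.69), but 4 higher without the block. Dhcr7, the last enzyme of the pathway, had 17.6 and 38.9 CPM at D0 and 121 and 109 CPM at D7 (log2 change 2.14, SE 0.35, adjusted p = 0.000632). Ebp had 13.2 and 13.5 CPM at D0 and 46.6 and 35.5 CPM at D7 (log2 change 1.64, SE 0.32, adjusted p = 0.00201). Mvd had 22 and 26.9 CPM at D0 and 59.6 and 60.5 CPM at D7 (log2 change 1.34, SE 0.32, adjusted p = 0.00787). Hmgcs1, near the start of the pathway, was not called (286 and 173 CPM at D0 and 425 and 255 CPM at D7). Calls were lost for Ebp without D7 replicate 1 (adjusted p = 0.0505) and Mvd without D7 replicate 1 or D0 replicate 2 (adjusted p up to 0.144), and for Mvd without the block (adjusted p = 0.0767). Amino acid transporters had 4 of 20 higher and 1 lower (0 without D0 replicate 1 and 2 without D5 replicate 1 or D5 replicate 2) (median 0.16): the cationic carriers Slc7a7 (3.42 and 5.24 CPM at D0 and 56.3 and 34.8 CPM at D7, log2 change 3.53) and Slc7a3 (3.91 and 5.99 CPM at D0 and 53.5 and 26.3 CPM at D7, log2 change 3.04), and Slc1a5, a carrier of glutamine (39.1 and 31.4 CPM at D0 and 122 and 129 CPM at D7, log2 change 1.80), rose, and Slc38a2 was not called (265 and 245 CPM at D0 and 275 and 325 CPM at D7). Lysosome genes had 3 of 29 higher (5 without D3 replicate 1, D5 replicate 1 or D5 replicate 2) and 3 lower (0 without D0 replicate 1, 1 without D7 replicate 1 and 5 without D5 replicate 2) (median -0.06). Neu1, a sialidase, had 16.6 and 22.5 CPM at D0 and 50.5 and 61.8 CPM at D7, and Ctsh, a cathepsin, 214 and 233 CPM at D0 and 73.5 and 96.6 CPM at D7, with log2 changes of 1.54 and -1.42. The Ctsh call was lost without the block (adjusted p = 0.0735) and without D0 replicate 1, D7 replicate 1 or D7 replicate 2 (adjusted p up to 0.176), and Lamp1 was not called (557 and 632 CPM at D0 and 427 and 453 CPM at D7).

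DNA methylation enzymes and readers had 7 of 16 higher (3 without D0 replicate 1 and 4 without D7 replicate 2) and none lower (1 without D5 replicate 2) (median 0.61), or 4 higher without the block. Dnmt3l, the cofactor of de novo methylation, had 0 CPM in both D0 libraries and 71.3 and 36.1 CPM at D7 (adjusted p = 2.11e-05, at least 70.5-fold higher). Tet1 and Tet2 oxidise methylcytosine. Tet1 had 7.83 and 8.98 CPM at D0 and 190 and 120 CPM at D7 (log2 change 4.27, SE 0.57, adjusted p = 0.000158). In Tet2 the values were 12.2 and 8.23 CPM at D0 and 105 and 49.3 CPM at D7 (log2 change 2.89, SE 0.56, adjusted p = 0.00204). Dnmt1, which copies methylation after replication, was not called (220 and 323 CPM at D0 and 332 and 340 CPM at D7, adjusted p = 0.385). The Tet2 call was lost without D0 replicate 1 (adjusted p = 0.0586).

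Polycomb subunits, which place repressive histone marks, had 13 of 32 higher (6 without D0 replicate 1, 7 without D7 replicate 1 and 8 without D0 replicate 2) and 6 lower (0 without D0 replicate 1 or D7 replicate 1 and 2 without D0 replicate 2 or D7 replicate 2) (median 0.63), or 8 and 2 without the block. Jarid2 and Epop are accessory subunits of the complex PRC2. Jarid2 had 29.4 and 30.7 CPM at D0 and 293 and 184 CPM at D7 (log2 change 2.97, SE 0.27, adjusted p = 9.5e-06). In Epop the values were 9.3 and 28.4 CPM at D0 and 102 and 110 CPM at D7 (log2 change 2.58, SE 0.40, adjusted p = 0.000438). The PRC2 core genes Ezh2, Eed and Suz12 were also among those that rose. Cbx7, a reader subunit of PRC1, had 8.81 and 6.74 CPM at D0 and 72.7 and 48.6 CPM at D7 (log2 change 2.95, SE 0.41, adjusted p = 0.000212), whereas Cbx6, another reader of that complex, fell, as did Bmi1. Rbbp7 was not called (296 and 302 CPM at D0 and 434 and 380 CPM at D7). Leaving out a library ended the call for Ezh2 whichever of the 4 libraries was left out (adjusted p up to 0.146), Eed whichever of the 4 libraries was left out (adjusted p up to 0.256), Suz12 without D0 replicate 1 (adjusted p = 0.0699), Cbx6 without D0 replicate 1, D1 replicate 1, D7 replicate 1, D0 replicate 2, D1 replicate 2 or D7 replicate 2 (adjusted p up to 0.187) and Bmi1 whichever of the 4 libraries was left out (adjusted p up to 0.251). Without the block the adjusted p was 0.0998 for Ezh2, 0.156 for Eed, 0.0635 for Suz12 and 0.0856 for Cbx6. Processed otherwise, the call was lost for Bmi1 with DESeq2 (adjusted p = 0.0692) and at equal depth (adjusted p = 0.107) and Cbx6 with no filter (adjusted p = 0.0506).

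NuRD subunits had 1 lower among 13 (0 without D0 replicate 1, D1 replicate 1, D7 replicate 1, D0 replicate 2, D1 replicate 2 or D7 replicate 2 and 2 without D5 replicate 2) and none higher. It was Chd3 (144 and 198 CPM at D0 and 92.9 and 112 CPM at D7, log2 change -0.73, SE 0.23, adjusted p = 0.0326); it was lost without the block (adjusted p = 0.1) and without D0 replicate 1, D1 replicate 1, D7 replicate 1, D0 replicate 2, D1 replicate 2 or D7 replicate 2 (adjusted p up to 0.297). The NuRD helicase Chd4 was not called (464 and 594 CPM at D0 and 514 and 679 CPM at D7). BAF remodelling subunits had 2 of 23 higher (0 without D0 replicate 1 or D7 replicate 1) and 3 lower (0 without D0 replicate 1, D1 replicate 1, D7 replicate 1, D0 replicate 2, D1 replicate 2 or D7 replicate 2 and 5 without D5 replicate 1 or D5 replicate 2) (median 0.03), none called lower without the block. Smarcd1 (48.4 and 53.1 CPM at D0 and 105 and 106 CPM at D7) and Actl6a (57.3 and 69.1 CPM at D0 and 136 and 113 CPM at D7) changed by 1.06 and 0.99, and the ATPase Smarca2 (53.8 and 41.9 CPM at D0 and 26.5 and 25.6 CPM at D7) by -0.88. Smarca4, the alternative ATPase, was not called (347 and 507 CPM at D0 and 339 and 415 CPM at D7). Single libraries ended the call for Smarcd1 without D0 replicate 1 or D7 replicate 1 (adjusted p up to 0.0723), Actl6a without D0 replicate 1 or D7 replicate 1 (adjusted p up to 0.16) and Smarca2 without D0 replicate 1, D1 replicate 1, D7 replicate 1, D0 replicate 2, D1 replicate 2 or D7 replicate 2 (adjusted p up to 0.311), and for Smarca2 without the block (adjusted p = 0.0769). Other settings gave no call for Chd3 with no filter (adjusted p = 0.0676) and with DESeq2 (adjusted p = 0.051) and Smarca2 with no filter (adjusted p = 0.0638) and with DESeq2 (adjusted p = 0.0958).

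Genes that silence retroelements had 8 of 22 higher (4 without D0 replicate 1, 5 without D7 replicate 1 and 13 without D5 replicate 1) and none lower (2 without D5 replicate 1 or D5 replicate 2) (median 0.72), or 4 without the block, and 4 of the 22 had 3 counts or fewer at D0. Zfp57, a zinc finger protein that guards imprints, had 42.1 and 32.2 CPM at D0 and 120 and 63.7 CPM at D7 (log2 change 1.28, SE 0.26, adjusted p = 0.00278). Mphosph8, of the HUSH silencing complex, had 55.4 and 32.9 CPM at D0 and 112 and 78.8 CPM at D7 (log2 change 1.14, SE 0.24, adjusted p = 0.00348). Fam208a, of the same complex, had 46.6 and 18.7 CPM at D0 and 92.6 and 40.9 CPM at D7 (log2 change 1.06, SE 0.36, adjusted p = 0.0414), and its days overlapped across replicate numbers. The list also counts Dppa4, and these data do not show whether Dppa4 silences retroelements. Dppa4 had 0 CPM in both D0 libraries and 58.8 and 44.7 CPM at D7 (adjusted p = 1.32e-05, at least 62.2-fold higher). Zfp600, whose reads may be shared with close relatives, had 0 CPM in both D0 libraries and 70.6 and 57.3 CPM at D7 (adjusted p = 0.000202, at least 75.7-fold higher). Atrx was not called (261 and 147 CPM at D0 and 477 and 318 CPM at D7). The call did not hold for Zfp57 without D0 replicate 1 or D7 replicate 1 (adjusted p up to 0.0792), Mphosph8 without D0 replicate 1 (adjusted p = 0.0593) and Fam208a without D0 replicate 1, D1 replicate 1, D7 replicate 1, D0 replicate 2, D1 replicate 2 or D7 replicate 2 (adjusted p up to 0.284). Without the block the adjusted p of these 3 was 0.0537, 0.111 and 0.413. Another tool or filter ended the call of Fam208a with DESeq2 (adjusted p = 0.0564).

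Mitosis genes had 0 calls among 24 with edgeR (median 0.07). At an unadjusted p under 0.05 there were 3, with DESeq2 0 and with limma-voom 0. With edgeR 0 were higher (2 without D5 replicate 2 and 3 without D5 replicate 1) and 0 lower (1 without D5 replicate 1 and 2 without D5 replicate 2). Top2a, a topoisomerase of dividing cells, stood at 673 and 501 CPM at D0 and 726 and 522 CPM at D7, and its days overlapped. DNA replication genes had 11 of 30 higher (2 without D0 replicate 1 or D7 replicate 1 and 5 without D7 replicate 2) and 1 lower (median 0.63), or 6 and 0 without the block. Cdt1, a licensing factor, had 32.3 and 47.9 CPM at D0 and 114 and 138 CPM at D7 (log2 change 1.68, SE 0.25, adjusted p = 0.000323). Orc1, of the origin recognition complex, had 15.2 and 11.2 CPM at D0 and 50.2 and 38.1 CPM at D7 (log2 change 1.75, SE 0.36, adjusted p = 0.00299). Chaf1b, a histone chaperone of replication, had 27.9 and 22.5 CPM at D0 and 70 and 58.5 CPM at D7 (log2 change 1.35, SE 0.30, adjusted p = 0.0046). Rrm1, a subunit of ribonucleotide reductase, was not called (316 and 323 CPM at D0 and 255 and 267 CPM at D7), and its partner Rrm2 was the member that fell (log2 change -0.78). Among these, the call ended for Orc1 without D0 replicate 1 (adjusted p = 0.0717), Chaf1b without D7 replicate 1 (adjusted p = 0.0535) and Rrm2 without D0 replicate 1, D1 replicate 1, D3 replicate 1, D7 replicate 1, D0 replicate 2, D1 replicate 2 or D7 replicate 2 (adjusted p up to 0.445), and for Rrm2 without the block (adjusted p = 0.101).

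Among cyclins and their kinases 1 of 26 rose (0 without D0 replicate 1 and 2 without D5 replicate 1) and 5 fell (3 without D0 replicate 1, D7 replicate 1 or D0 replicate 2) (median 0.14). The D-type cyclins Ccnd1 and Ccnd2 link growth signals to the cycle. Ccnd1 had 385 and 557 CPM at D0 and 88.4 and 152 CPM at D7 (log2 change -2.0, SE 0.26, adjusted p = 0.000126). In Ccnd2 the values were 602 and 660 CPM at D0 and 169 and 170 CPM at D7 (log2 change -1.90, SE 0.24, adjusted p = 8.9e-05). E2f2, an activator of S-phase genes, had 2.45 and 2.25 CPM at D0 and 12.6 and 12.5 CPM at D7 (log2 change 2.41, SE 0.57, adjusted p = 0.00771), and Cdk4, the kinase partner of D-type cyclins, was not called (372 and 355 CPM at D0 and 406 and 381 CPM at D7). The list of p53 targets and kinase inhibitors of the cell cycle had 4 of 29 higher (2 without D0 replicate 1) and 13 lower (2 without D0 replicate 1, 4 without D7 replicate 1 and 7 without D0 replicate 2) (median -0.41), or 3 and 8 without the block. Fas, a death receptor, had 10.3 and 8.23 CPM at D0 and 1.09 and 0 CPM at D7 (log2 change -3.66, SE 0.86, adjusted p = 0.00705). Gadd45g had 150 and 123 CPM at D0 and 21.3 and 34.8 CPM at D7 (log2 change -2.38, SE 0.47, adjusted p = 0.00232), and the kinase inhibitor Cdkn2c 17.6 and 21.7 CPM at D0 and 3.26 and 5.91 CPM at D7 (log2 change -2.17, SE 0.54, adjusted p = 0.01). Cdkn1c was not called (230 and 138 CPM at D0 and 336 and 332 CPM at D7). Calls were lost for E2f2 without D0 replicate 1 (adjusted p = 0.119), Fas without D0 replicate 1 or D7 replicate 2 (adjusted p up to 0.0668), Gadd45g without D0 replicate 1 (adjusted p = 0.0621) and Cdkn2c without D0 replicate 1, D7 replicate 1 or D0 replicate 2 (adjusted p up to 0.128).

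Cytosolic ribosomal protein genes had 1 of 41 higher (0 without D0 replicate 1, D7 replicate 1, D0 replicate 2 or D7 replicate 2, 2 without D3 replicate 1, 7 without D5 replicate 2 and 11 without D5 replicate 1) and none lower, with a median of 0.36, above that of all tested genes. Rpl5 had 64.5 and 32.9 CPM at D0 and 114 and 68.1 CPM at D7 (log2 change 0.92, SE 0.28, adjusted p = 0.0277), a call lost without the block (adjusted p = 0.193) and whichever of the 4 libraries was left out (adjusted p up to 0.167). Rps2 stood at 1968 and 2357 CPM at D0 and 1868 and 2450 CPM at D7. The list of Lin28 genes, let-7 targets and related genes had 5 of 19 higher and 4 lower (median 0.05). Fewer were lower without D0 replicate 1 or D7 replicate 2. Lin28a and Lin28b block the maturation of let-7 microRNAs. Lin28a had 0 CPM in both D0 libraries and 72.4 and 56.5 CPM at D7 (adjusted p = 1.44e-05, at least 77.1-fold higher). In Lin28b the values were 0.979 and 0 CPM at D0 and 22.8 and 18.4 CPM at D7 (ratio 36.7, 95% counting interval 9.97 to 306, adjusted p = 0.00136). Trim71, an RNA-binding target of let-7, had 2.94 and 5.99 CPM at D0 and 74.6 and 58.5 CPM at D7 (log2 change 3.97, SE 0.56, adjusted p = 0.000242). Arid3b had 3.42 and 4.49 CPM at D0 and 65.2 and 60.5 CPM at D7 (log2 change 4.02, SE 0.45, adjusted p = 3.95e-05). Mycl had 1.47 and 1.5 CPM at D0 and 14.6 and 21 CPM at D7 (log2 change 3.50, SE 0.65, adjusted p = 0.00161). Hmga1, Hmga2, Myc and E2f6 were those that fell, and Ago2 was not called (294 and 372 CPM at D0 and 309 and 382 CPM at D7). Leaving out a library ended the call for Myc without D0 replicate 1 or D7 replicate 2 (adjusted p up to 0.0626) and E2f6 without D0 replicate 1, D1 replicate 1, D7 replicate 1, D0 replicate 2, D1 replicate 2 or D7 replicate 2 (adjusted p up to 0.214). Without the block Hmga1 (adjusted p = 0.0836) and E2f6 (adjusted p = 0.0679) were not called. A change of setting ended the call of E2f6 with no filter (adjusted p = 0.0604) and with DESeq2 (adjusted p = 0.0637).

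Germline genes that DNA methylation is known to silence rose in 15 of 19 tested cases, with none lower and a median of 3.92. The list has 37 members in the files, 14 of the 19 tested had 3 counts or fewer at D0, and such members passed the filter only through later days. Their summed level was 16.2 and 8.84 CPM at D0 and 712 and 491 CPM at D7. Rhox5, an X-linked homeobox gene of the reproductive tract, had 1.96 and 0 CPM at D0 and 90.9 and 63.7 CPM at D7 (log2 change 6.17, SE 0.57, adjusted p = 1.05e-05). Stag3, a cohesin subunit of meiosis, had 3.42 and 0.748 CPM at D0 and 28.3 and 21.7 CPM at D7 (log2 change 3.56, SE 0.60, adjusted p = 0.000834). Dazl, a translation factor of germ cells, had 0 CPM in both D0 libraries and 136 and 47.3 CPM at D7 (adjusted p = 6.41e-05, at least 128-fold higher with the libraries of a day pooled). D7 replicate 2 alone would give a smaller bound. Trap1a, a tumour rejection antigen of the testis, had 0 CPM in both D0 libraries and 53.5 and 53.2 CPM at D7 (adjusted p = 3.95e-05, at least 60.2-fold higher). Prdm1, a specifier of germ cells that other tissues use as well, was not called (2.45 and 1.5 CPM at D0 and 11.7 and 8.54 CPM at D7). By TPM, Rhox5 was the highest of these 4 at D7 (238 and 163 TPM), followed by Dazl (92 and 26.2 TPM) and Trap1a (78.4 and 77.2 TPM), whose order differed between the 2 libraries. Sycp3, Tex101, Hormad1 and Tdrd1, all of meiosis or sperm formation, were among the 18 members with too few counts to be tested. Processed otherwise, the call was lost for Dazl with DESeq2 (adjusted p = 0.138).

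The E-box CACGTG (both strands), a sequence that dimers of Max with partners such as Myc and Mga bind, was in the promoters of 13 of the 31 members with an entry in the RefSeq table, 41.9%, against 2187 of 27025 genes, 8.09%. The 13 were Brdt, Ddx4, Hormad1, Mael, Mov10l1, Rbmxl2, Slc25a31, Stag3, Stk31, Sycp1, Sycp3, Taf7l and Tdrd1. Ddx4, Mael, Rbmxl2 and Stag3 were called higher, Sycp1 was not called, and the other 8 were not tested. The promoters of 3 of the called genes are shown with the motif in capitals, picked for their match after the values were seen. Ddx4, the helicase vasa, had 0 CPM in both D0 libraries and 11.1 and 5.91 CPM at D7 (adjusted p = 0.00339, at least 11-fold higher). Mael, a piRNA pathway protein, had 0 CPM in both D0 libraries and 5.87 and 7.23 CPM at D7 (adjusted p = 0.019, at least 7-fold higher). Single libraries ended the call for Ddx4 without D0 replicate 1 (adjusted p = 0.0917) and Mael whichever of the 4 libraries was left out (adjusted p up to 0.155). The windows of 250 bases lie at chr13:112652311-112652560, minus strand; chr5:138280259-138280508, plus strand; and chr1:166238745-166238994, minus strand, and the motif starts 29, 170 and 223 bases before the respective start. Absence of the letters from other members says nothing about what binds there.
Ddx4: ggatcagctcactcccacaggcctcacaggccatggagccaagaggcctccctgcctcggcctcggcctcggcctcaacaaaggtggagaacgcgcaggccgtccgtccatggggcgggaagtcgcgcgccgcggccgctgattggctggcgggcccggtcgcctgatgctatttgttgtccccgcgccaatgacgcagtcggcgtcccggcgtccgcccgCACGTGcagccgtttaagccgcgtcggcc
Stag3: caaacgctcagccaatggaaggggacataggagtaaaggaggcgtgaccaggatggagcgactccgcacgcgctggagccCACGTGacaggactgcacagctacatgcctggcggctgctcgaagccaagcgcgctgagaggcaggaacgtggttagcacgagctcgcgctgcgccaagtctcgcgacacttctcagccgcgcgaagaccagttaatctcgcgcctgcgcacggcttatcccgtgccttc
Mael: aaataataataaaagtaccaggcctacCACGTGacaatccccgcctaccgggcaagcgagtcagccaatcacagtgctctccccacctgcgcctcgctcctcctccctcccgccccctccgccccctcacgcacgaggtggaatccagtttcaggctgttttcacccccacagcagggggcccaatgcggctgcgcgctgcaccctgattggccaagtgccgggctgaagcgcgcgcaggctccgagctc

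Genes of the 2-cell embryo, the stage at which the mouse genome is first transcribed, had 5 of 6 tested members higher (1 without D0 replicate 1, 2 without D7 replicate 1 and 3 without D0 replicate 2 or D7 replicate 2), of 20 in the files. Of the 6, 5 had 3 counts or fewer at D0. Zscan4f had 4.82 and 0 CPM at D0 and 28.4 and 15.2 CPM at D7 (log2 change 3.26, SE 0.81, adjusted p = 0.00954). Zscan4c had 0 CPM in both D0 libraries and 14.7 and 9.67 CPM at D7 (adjusted p = 0.0041, at least 15.3-fold higher). Gm4340 had 0 CPM in both D0 libraries and 16.4 and 16.9 CPM at D7 (adjusted p = 0.00717, at least 18.8-fold higher). RSEM divides reads between such near-identical copies by estimation, so the level of any 1 copy is uncertain. Usp17lc was not called (1.47 and 0 CPM at D0 and 6.36 and 7.64 CPM at D7). The summed level of the 20 genes was 11.7 and 0.748 CPM at D0 and 122 and 92.6 CPM at D7. The call did not hold for Zscan4f without D0 replicate 2 or D7 replicate 2 (adjusted p up to 0.0665), Gm4340 without D0 replicate 1 (adjusted p = 0.0956) and Zscan4c without D0 replicate 1 or D7 replicate 1 (adjusted p up to 0.085), and for Zscan4f without the block (adjusted p = 0.0791). Other settings gave no call for Gm4340 with DESeq2 (adjusted p = 0.296).

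Imprinted genes had 4 of 27 higher and 6 lower (3 without D0 replicate 1 or D7 replicate 1) (median -0.36), or 4 and 2 without the block. Nnat, neuronatin, had 10.8 and 14.2 CPM at D0 and 193 and 126 CPM at D7 (log2 change 3.70, SE 0.38, adjusted p = 2.11e-05). Ppp1r9a, a neuronal actin-binding protein, had 6.85 and 6.74 CPM at D0 and 85.3 and 65.7 CPM at D7 (log2 change 3.48, SE 0.41, adjusted p = 6.77e-05). Phlda2, a restrainer of placental growth, had 0 CPM in both D0 libraries and 9.57 and 14.5 CPM at D7 (adjusted p = 0.00176, at least 12.2-fold higher). Dcn, the proteoglycan decorin, had 10.8 and 8.98 CPM at D0 and 1.31 and 2.63 CPM at D7 (log2 change -2.46, SE 0.78, adjusted p = 0.0326), a call lost without the block (adjusted p = 0.0676) and whichever of the 4 libraries was left out (adjusted p up to 0.284). Igf2 and H19, which share an imprinting control region and enhancers, differed: Igf2 was called lower and H19 was not called (log2 change -0.43, adjusted p = 0.409). Both had a lower D7 level in replicate 1 than in replicate 2. The difference between the 2 genes was not tested. Another tool or filter ended the call of Dcn with DESeq2 (adjusted p = 0.0639).

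Marker lists set the labelled cell type beside other cell types. Fibroblast markers fell in 11 of 15 tested cases with none higher (median -2.46), and their summed level was 20331 and 24127 CPM at D0 and 2530 and 3699 CPM at D7. At D0 the libraries carried most markers of the labelled cell type, but Dcn, Lum, Cd34, Ly6a and Fap stood at no more than 12 CPM in either library. S100a4, a calcium-binding protein of motile fibroblasts, had 254 and 126 CPM at D0 and 6.53 and 1.31 CPM at D7 (log2 change -5.34, SE 0.56, adjusted p = 2.58e-05). Pdgfra, a PDGF receptor of mesenchyme that primitive endoderm also makes, was not called (172 and 146 CPM at D0 and 91.8 and 87 CPM at D7, adjusted p = 0.0859), and neither were Lum, Cd34 and Ly6a.

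Extraembryonic endoderm markers, of the yolk sac lineage, had 9 of 17 tested members higher and 2 lower (1 without D7 replicate 2) (median 1.96). Of the 17, 3 had 3 counts or fewer at D0, and the summed level of the list went from 5057 and 5410 CPM to 3253 and 2536 CPM, with falls in Sparc and Col4a1, which fibroblasts also make. Sox17, a factor of endoderm, had 0 CPM in both D0 libraries and 16 and 17.7 CPM at D7 (adjusted p = 0.00119, at least 18.6-fold higher), and its relative Sox7 0.979 and 0 CPM at D0 and 11.1 and 21.7 CPM at D7 (ratio 23.2, 95% counting interval 6.23 to 195, adjusted p = 0.00969). Foxq1 had 0.979 and 2.25 CPM at D0 and 27.2 and 13.8 CPM at D7 (log2 change 3.88, SE 0.70, adjusted p = 0.00127). Cubn, an endocytic receptor of yolk sac and kidney, had 1.47 and 2.25 CPM at D0 and 178 and 11.8 CPM at D7 (log2 change 5.55, SE 1.11, adjusted p = 0.00256), with most of the rise in D7 replicate 1. Lamb1 was not called (525 and 555 CPM at D0 and 469 and 295 CPM at D7). Afp, Ttr, Apoa1, Hnf4a and Foxa1 were not tested. Among these, the call ended for Cubn without D0 replicate 1 or D7 replicate 1 (adjusted p up to 0.243), Sox7 without D0 replicate 2 (adjusted p = 0.0898) and Col4a1 without D7 replicate 2 (adjusted p = 0.0589). Whether such cells take part in the other rises was not tested.

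Primitive streak and mesoderm markers had 9 of 13 tested members higher and none lower (median 2.26), with a summed level of 13.7 and 14.2 CPM at D0 and 228 and 211 CPM at D7, and 10 of the 13 had 3 counts or fewer at D0. T, Cdx1 and Sp5 of this list were already counted in the Wnt list, and T also among formative and primed genes. Sp5, a zinc finger target of Wnt, had 3.91 and 2.99 CPM at D0 and 44.8 and 82.1 CPM at D7 (log2 change 4.04, SE 0.43, adjusted p = 2.85e-05), and Eomes was not called (5.38 and 8.23 CPM at D0 and 9.14 and 7.23 CPM at D7). Endothelial markers had 9 of 12 higher (5 without D0 replicate 1, D0 replicate 2 or D7 replicate 2) and 2 lower (median 2.89), and 5 of the 12 had 3 counts or fewer at D0. Their summed level was 501 and 554 CPM at D0 and 273 and 308 CPM at D7, with falls in Flt1 and Eng. Pecam1, 1 of the endothelial markers that rose, was already counted among the naive regulators. Cldn5, a claudin of vessels, had 0 CPM in both D0 libraries and 16.3 and 18.4 CPM at D7 (adjusted p = 0.000949, at least 19-fold higher). Sox18 had 1.96 and 2.25 CPM at D0 and 9.14 and 28.3 CPM at D7 (log2 change 2.93, SE 0.71, adjusted p = 0.00822). Vwf had 2.45 and 0 CPM at D0 and 9.08 and 11.3 CPM at D7 (log2 change 2.84, SE 0.80, adjusted p = 0.0185). Flt1, a VEGF receptor, had 145 and 189 CPM at D0 and 28.5 and 17.7 CPM at D7 (log2 change -2.70, SE 0.38, adjusted p = 0.000226). Kdr, the main VEGF receptor, was not called (15.7 and 21.7 CPM at D0 and 24.1 and 30.9 CPM at D7). Calls were lost for Sox18 without D0 replicate 1, D0 replicate 2 or D7 replicate 2 (adjusted p up to 0.0813) and Vwf without D0 replicate 2 or D7 replicate 2 (adjusted p up to 0.078), and for Vwf without the block (adjusted p = 0.0642). Trophoblast markers had 4 of 11 higher (1 without D0 replicate 1 or D7 replicate 2 and 2 without D7 replicate 1 or D0 replicate 2) and 2 lower (1 without D0 replicate 1 or D7 replicate 2) (median 0.21), and 4 of the 11 had 3 counts or fewer at D0. Tfap2c, which germ cells and pluripotent cells use too, had 0.979 and 0 CPM at D0 and 44.4 and 36.1 CPM at D7 (ratio 71.5, 95% counting interval 19.6 to 594, adjusted p = 1.12e-05). Cdx2 had 0 and 0.748 CPM at D0 and 5.87 and 7.88 CPM at D7 (ratio 21.5, 95% counting interval 3.65 to 872, adjusted p = 0.0115) and P-cadherin (Cdh3) 161 and 206 CPM at D0 and 65.7 and 79.5 CPM at D7 (log2 change -1.33, SE 0.31, adjusted p = 0.00724), while Ets2 was not called (25.4 and 33.7 CPM at D0 and 28.5 and 40.1 CPM at D7). Leaving out a library ended the call for Cdx2 without D0 replicate 1, D7 replicate 1 or D7 replicate 2 (adjusted p up to 0.146) and Cdh3 without D0 replicate 1 or D7 replicate 2 (adjusted p up to 0.087).

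Markers of other lineages were scarce. Of 19 neural markers 5 were tested, with 1 higher and 3 lower: Nes, an intermediate filament protein that fibroblasts in culture also make, had 171 and 215 CPM at D0 and 29.6 and 45.3 CPM at D7 (log2 change -2.39, SE 0.31, adjusted p = 0.00013). Map2 had 26.4 and 26.2 CPM at D0 and 13.1 and 7.23 CPM at D7 (log2 change -1.42, SE 0.41, adjusted p = 0.0218), and Tubb3 was not called (5.87 and 15.7 CPM at D0 and 27.8 and 15.1 CPM at D7). The one that rose was Zic1 (log2 change 1.0). Of 15 muscle and adipocyte markers 3 were tested, with Des, desmin, lower (219 and 290 CPM at D0 and 14.1 and 25 CPM at D7, log2 change -3.77), Cebpa lower (26.4 and 32.9 CPM at D0 and 5.22 and 7.23 CPM at D7, log2 change -2.24) and Lpl higher (6.85 and 6.74 CPM at D0 and 29.5 and 35.5 CPM at D7, log2 change 2.24). Of 13 macrophage markers 3 were tested, with 0 calls by edgeR, 0 by DESeq2 and 1 by limma-voom, and 2 at an unadjusted p under 0.05. Their summed level was 38.6 and 25.7 CPM at D0 and 27.3 and 28.3 CPM at D7. The defining macrophage genes Ptprc (2.45 and 0 CPM at D0 and 0.218 and 0 CPM at D7) and Csf1r (7.28 and 6.24 CPM at D0 and 1 and 0.697 CPM at D7) had too few counts to be tested, and 3 counts stood for 1.378 and 2.011 CPM at D0. Of 12 erythroid markers 1 was tested, with 0 calls by any of the 3 tools, and Hbb-bt and Hbb-bs had no count in the 4 libraries. Krt14 and Krt1, keratins of skin, had none either. Keratinocyte markers had 4 of 13 tested, with Sfn lower (44 and 51.6 CPM at D0 and 23.3 and 6.57 CPM at D7, adjusted p = 0.0321) and Perp not called (18.6 and 11.2 CPM at D0 and 19.6 and 28.3 CPM at D7), and neural crest, glia and pigment markers 5 of 11 tested, with 1 higher (0 without D0 replicate 1 and 2 without D7 replicate 2), Erbb3 (1.47 and 2.99 CPM at D0 and 28.3 and 17.7 CPM at D7, log2 change 3.43) and Ngfr not called (37.2 and 64.4 CPM at D0 and 102 and 59.8 CPM at D7). Single libraries ended the call for Map2 without D7 replicate 1, D0 replicate 2 or D7 replicate 2 (adjusted p up to 0.224), Zic1 without D0 replicate 1, D1 replicate 1, D7 replicate 1, D0 replicate 2, D1 replicate 2, D3 replicate 2 or D7 replicate 2 (adjusted p up to 0.374), Cebpa without D0 replicate 1 (adjusted p = 0.0784), Sfn without D0 replicate 1, D3 replicate 1, D0 replicate 2 or D7 replicate 2 (adjusted p up to 0.237) and Erbb3 without D0 replicate 1 (adjusted p = 0.0728). Without the block Map2 (adjusted p = 0.147), Zic1 (adjusted p = 0.202) and Sfn (adjusted p = 0.059) were not called. A change of setting ended the call of Zic1 with DESeq2 (adjusted p = 0.124) and at equal depth (adjusted p = 0.124).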

How the data were processed

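Total RNA was extracted with TRIzol and sequenced on an Illumina NextSeq, per the labels' protocols; these list a pair of library kits and a pair of sequencing kits, and which library had which is not stated. Per the submitters' processing notes, the authors used bcl2fastq, Bowtie2, RSEM and the mouse build mm10; no version, filter or strand setting is given in the sources used here. Each of the 10 deposited tables gives, per the file headers, the authors' RSEM expected count for a gene, which need not be whole because RSEM divides reads that fit several genes, and the authors' TPM and FPKM, both scaled to length and library by RSEM. Near-identical genes are therefore uncertain, overlapping genes on opposite strands may share reads, and viral and endogenous transcripts of a delivered factor share a row. Expected counts were rounded for the tests, TPM served only to compare levels between genes, and FPKM were not used. Gene names were matched for 54723 of 54752 identifiers in GENCODE M21 (GRCm38), which also gave coordinates; promoters came from RefSeq's table for GRCm38.p6.

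Counts were fitted with edgeR 4.0.16 (R 4.3.3): TMM scaling, filterByExpr by day with a minimum count of 10, a term for day and one for replicate number, glmQLFit and glmQLFTest for D7 minus D0, and Benjamini-Hochberg adjustment over the 12752 genes tested, with 4 residual degrees of freedom. The SE is the absolute log2 change over the square root of F. The replicate numbers pair the libraries by the correlations across genes of replicate 1 minus replicate 2, given above; the labels only speak of 2 independent experiments. Where a day summed to 0 counts, the fold is a bound from 3 counts over its 2 libraries, set against the pooled counts of the other day, both scaled to CPM. Pooling gives D7 replicate 1, the deeper library, more weight. Where D7 replicate 2 was lower, the bound of a rise therefore lies above the fold of replicate 2 alone. At 1 to 3 counts a ratio of pooled counts with an exact 95% interval is given, which covers counting error only. Named genes are the delivered factors; the 12 called genes with the largest rise and the 12 with the largest fall in mean CPM; in each list, the 3 called members with the largest log2 change, up to 2 called members with 3 counts or fewer on one day and the most abundant member not called; and the 8 most abundant genes not called. Some genes that the rule selects are not reported here. Other members of a list are named beside these where their role was needed to describe it, and were chosen after their values were seen. The comparison, the 61 lists and the rule were chosen with earlier results of these data known. Alternatives were a fit without the block, the 4 libraries alone, RLE scaling, no filter or a minimum count of 30, DESeq2 1.42.0 and limma-voom 3.58.1 with the block, libraries thinned to 1 depth, and each library left out. D1, D3 and D5 entered the fit and are described only by shares of counts, and set tests were not run.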

Additional observations from a re-analysis of the deposited data

How the results depend on the processing

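The number of genes called higher was 1884 with the replicate block and lower 1745. Without the block they were 1167 and 1111, and leaving out 1 library at a time, the 6 of D1, D3 and D5 included, gave 685 to 2669 higher and 790 to 2336 lower. Both counts stayed within 1.5 times the reported one with the 4 libraries alone (2488 higher and 2333 lower), RLE scaling (1927 and 1705), no filter (2321 and 1720), a minimum count of 30 (1480 and 1520), DESeq2 (1517 and 1468), limma-voom (1961 and 1929) and libraries thinned to 1 depth (1717 and 1507). Of 260 called genes named in the text, 164 were called under each of the 18 alternatives that tested them. Without the block 45 of them lost the call, with DESeq2 15, with limma-voom 4, with no filter 5 and at equal depth 5. Without D0 replicate 1 the number was 79, without D7 replicate 1 62, without D0 replicate 2 45 and without D7 replicate 2 47; the lone library of that day was then taken to vary as the other days do. With the 4 libraries alone, RLE scaling and the minimum count of 30 none of those tested lost it. Of 74 named genes that were not called, 24 were called under some alternative, and no named gene changed direction with a call. List counts that moved by over 1.5 times without the block, and named genes that lost their call without it, are given above. Depth limits genes near 3 counts, and replicate 2 was the shallower library on both days.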
